A study of Mus musculus with 17 samples.

Results

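Neonatal CD11c+ microglia were compared with the microglia of healthy adult mice by RNA sequencing, using all 4 libraries of the first population (numbered 13 to 16) and all 3 of the second (numbered 21 to 23), 7 of the 17 libraries of the series. The labels give C57BL/6 for all mice, and none of these groups was treated or carried an engineered allele. The neonatal cells were sorted from brains of pups of both sexes at postnatal days 4 to 6 as CD45dim CD11b+ CD11c+ cells, and each library is a pool of 10 to 15 mice. The adult cells came from unmanipulated mice aged 8 to 12 weeks, also pooled, and the adult mice bought for the study were females. One label calls the adult libraries total microglia and another calls them CD11c negative. Age, the CD11c gate and sex therefore differ together between the groups, and their parts in any difference cannot be told apart from these 7 libraries. The 4 libraries of neonatal CD11c− microglia (17 to 20), from pups of the same age, were used for a direct comparison within the neonates. Fits of all 17 libraries also held libraries 1 to 6. These were CD11c+ and CD11c− microglia of mice immunised to develop experimental autoimmune encephalomyelitis (EAE). The pools of neonatal and of adult microglia came from 4 individual sorts, and the sources used here do not say which libraries shared one, so the p-values measure the spread between these pools.

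Microglia are the resident macrophages of the brain and spinal cord. They descend from yolk sac precursors that enter the brain in the embryo, and they divide in the young brain until the adult density is reached. CD11c, encoded by Itgax, is an integrin subunit that pairs with CD18 to form complement receptor 4. In the first postnatal week the brain forms its first myelin, many neurons and glial cells die and are cleared, and microglia that carry CD11c gather in the developing white matter. Adult microglia in contrast depend on TGF-β, and carry a set of sensing receptors that is used to recognise them.

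Counted reads were 6373937 to 9294738 in the neonatal CD11c+ and 7500815 to 9246061 in the adult libraries. The markers of microglia were read in all 7 libraries, among them Cx3cr1 (4555, 4994, 4947 and 4169 against 7435, 7742 and 6997 CPM), here and below in the order of libraries 13 to 16 against 21 to 23 and as counts per 1000000 after TMM scaling (CPM). Library 16 stood apart from the other neonatal CD11c+ libraries: its median correlation with them was 0.977 where theirs were 0.989 to 0.992, and its mean distance from them over the 500 most different genes was 1.98 on the log2 scale where theirs were 1.35 to 1.46. It was also the shallowest of the 7. Each count of a gene list was therefore also made without it. Mitochondrial transcripts took 1.31% to 1.56% of the counts in the neonatal and 0.588% to 0.750% in the adult libraries. In such bulk samples fewer cells of a type and less RNA per cell cannot be told apart.

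The label of the sort was checked with the gene of the sorted protein. Itgax stood at 312, 389, 427 and 285 CPM in neonatal CD11c+ and 30.4, 31.9 and 30.5 CPM in adult microglia (log2 fold change 3.51 ± 0.15, adjusted p = 2.3e-08). All 4 neonatal libraries were above all 3 adult ones, and the adult level of about 31 CPM was in turn above that of neonatal CD11c− microglia, which had 9.45 ± 1.52 CPM. The Y-linked genes showed the difference in sex. Kdm5d, a histone demethylase gene, had 21.7, 11.2, 15.2 and 29.8 CPM in neonatal CD11c+ and 0, 0 and 0 CPM in adult microglia (at least 158-fold higher, adjusted p = 2.0e-05), and Ddx3y, a helicase gene, had 40.7, 15.97, 27.5 and 64.6 against 0, 0.106 and 0 CPM (ratio of pooled counts 891, 95% exact interval 159.5 to 35206, adjusted p = 1.1e-05). Uty (at least 110.3-fold higher, adjusted p = 8.6e-05) and Eif2s3y (ratio of pooled counts 372, 95% exact interval 103 to 3079.7, adjusted p = 8.7e-06) showed the same split, so Y-linked transcripts were present in every neonatal library, while the 3 adult libraries together held at most 2 counts of each of the 4 genes.

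Genes with at least 1 CPM in at least 3 of the 7 libraries were tested (12434 genes). A gene was called where its adjusted p did not exceed 0.01 and its groups differed 2-fold or more (1 on the log2 scale). By this rule 1520 genes were higher (12.2% of those tested) and 946 lower (7.61%) in neonatal CD11c+ microglia. By the adjusted p alone, which is what "rose" and "fell" mean below, 3201 genes rose (25.7%) and 2651 fell (21.3%). For 7514 genes (60.4%) the 4 neonatal libraries and the 3 adult libraries did not overlap, so separated groups alone are common in this comparison. Of the genes called higher, 442 had an adult mean under 1 CPM, and 191 of the genes called lower had a neonatal mean under 1 CPM. The differences were wide at both ends, with a fitted log2 fold change of 5 or more for 97 genes called higher and of −5 or less for 35 called lower.

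**Figure D1:**
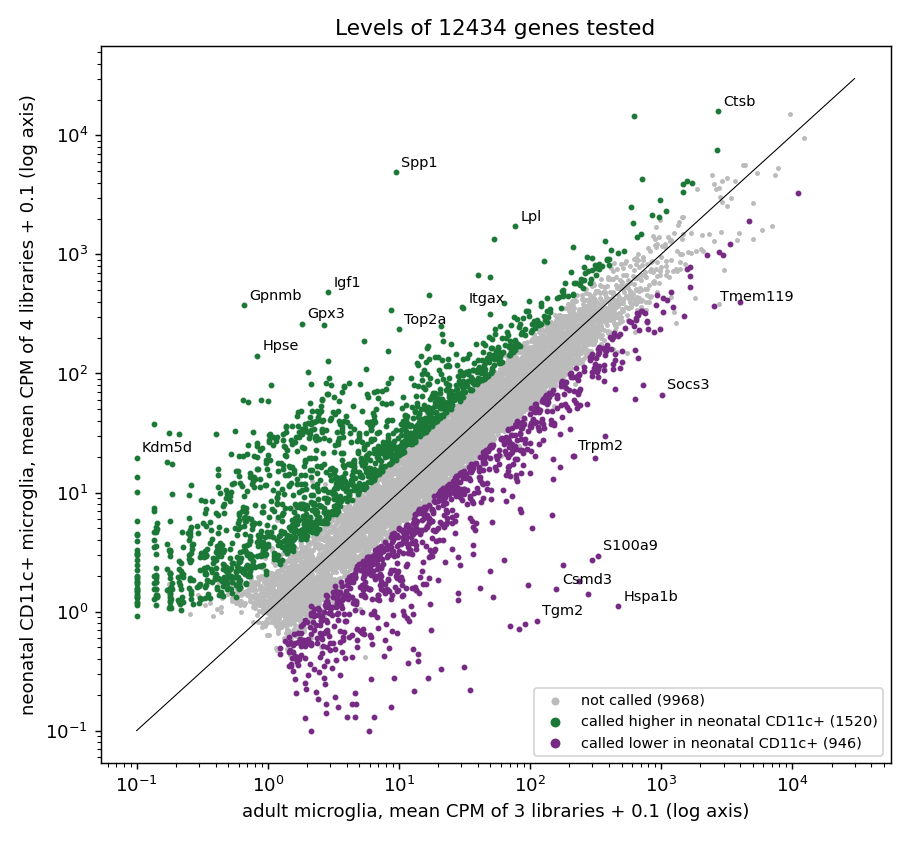
Mean level of each of the 12434 genes tested in neonatal CD11c+ microglia (vertical, 4 libraries) against adult microglia (horizontal, 3 libraries), in CPM with 0.1 added, both on log axes, with the line of equal levels. The 1520 genes called higher lie above the line and reach down to adult levels near 0, among them Gpnmb and Spp1, and the 946 called lower include Hspa1b and Tgm2.

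Outside the Y chromosome, the largest increases were of secreted proteins, lysosomal proteins and surface receptors. Gpnmb, a membrane glycoprotein of lysosome-rich macrophages, had 383, 402, 426 and 280.03 CPM in neonatal CD11c+ and 1.10, 0.319 and 0.257 CPM in adult microglia (log2 fold change 9.36 ± 0.30, adjusted p = 5.1e-09). Spp1, which encodes the secreted matrix protein osteopontin, had 5120.5, 5839, 5488 and 3260.1 CPM in neonatal CD11c+ and 13.1, 8.07 and 6.95 CPM in adult microglia (log2 fold change 9.03 ± 0.33, adjusted p = 1.1e-08). Both genes were far above the adult libraries in every neonatal library, with library 16 the lowest. Hpse, the enzyme that cuts heparan sulfate chains of the matrix, had 144, 149, 153 and 119 against 0.487, 0.531 and 1.16 CPM (log2 fold change 7.61 ± 0.19, adjusted p = 1.5e-09). Igf1, the growth factor that drives growth and myelin formation, had 497, 553, 468 and 397 against 2.44, 4.25 and 1.67 CPM (log2 fold change 7.39 ± 0.24, adjusted p = 6.5e-09). Gpx3, a secreted glutathione peroxidase, had 270.00, 250.3, 269 and 254 against 1.22, 2.02 and 1.93 CPM (log2 fold change 7.22 ± 0.13, adjusted p = 4.4e-10), with the narrowest spread of these 5 genes among the neonatal libraries.

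Several genes among the largest increases were close to absent in adult microglia. Cd28, known as the costimulatory receptor of T cells, had 37.2, 34.01, 28.8 and 24.6 against 0.122, 0.212 and 0 CPM (ratio of pooled counts 269.99, 95% exact interval 92.1 to 1311, adjusted p = 2.9e-08). The T cell genes Cd3e, Cd3d, Cd3g, Cd8a, Trac and Cd2 had no count in any neonatal CD11c+ library. Cd3e, Cd3g, Trac and Cd2 had none in any adult library either. The summed T cell list was 9.05 to 27.5 CPM in the neonatal and 2.12 to 3.47 CPM in the adult libraries. Without Cd4 it was 1.89 to 3.15 against 0.85 to 2.31 CPM. The part of T cell RNA in the level of Cd28 was not tested. Atp6v0d2, a subunit of the proton pump known from osteoclasts and macrophages, had 18.2, 21.5, 17.3 and 14.2 against 0, 0.212 and 0 CPM (ratio of pooled counts 231, 95% exact interval 63.6 to 1908, adjusted p = 1.3e-07). Mamdc2, a matrix protein gene, had 17.2, 18.9, 18.6 and 13.99 against 0, 0 and 0.257 CPM (ratio of pooled counts 221, 95% exact interval 60.98 to 1832, adjusted p = 1.2e-07). Atp2b4, a calcium pump of the plasma membrane, had 55.9, 66.6, 57.9 and 51.3 against 0.974, 0.212 and 0.643 CPM (log2 fold change 6.58 ± 0.24, adjusted p = 1.0e-08). For these 4 genes no adult library reached 1 CPM and no neonatal library was under 13.99 CPM. Fcna, a lectin that activates complement, had 104, 65.5, 32.1 and 36.6 against 0.487, 0.637 and 0.514 CPM (log2 fold change 6.73 ± 0.63, adjusted p = 6.5e-06), and Lyve1, a hyaluronan receptor used as a marker of macrophages along vessels and meninges, had 445, 282, 156 and 147 against 0.974, 4.67 and 2.06 CPM (log2 fold change 6.60 ± 0.57, adjusted p = 3.6e-06). Unlike the others, these last 2 varied widely within the neonatal group, with library 13 about 3 times as high as libraries 15 and 16.

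Among the largest decreases were the inducible heat shock genes and the transglutaminase gene. Hspa1b, one of a near-identical pair of genes for the inducible chaperone HSP70, had 0.739, 0.652, 1.01 and 1.63 CPM in neonatal CD11c+ and 479, 375 and 552 CPM in adult microglia (log2 fold change -8.92 ± 0.21, adjusted p = 1.3e-09), and its partner Hspa1a had 0.739, 0.543, 0.503 and 5.04 against 271, 188 and 253 CPM (log2 fold change -7.33 ± 0.40, adjusted p = 1.2e-07). The pair share most of their sequence, so the split of reads between them is uncertain, but both were far under the adult level in every neonatal library. Tgm2, tissue transglutaminase, had 0.422, 0.761, 0.629 and 1.14 against 118, 121 and 101 CPM (log2 fold change -7.30 ± 0.16, adjusted p = 7.9e-10). Csmd3, a gene for a large membrane protein with complement control domains, had 1.37, 1.63, 1.76 and 0.976 against 164, 136 and 177 CPM (log2 fold change -6.75 ± 0.15, adjusted p = 7.9e-10), and Chst8, a carbohydrate sulfotransferase gene, had 0.106, 0.109, 0 and 0.488 against 18.3, 15.8 and 15.9 CPM (log2 fold change -6.63 ± 0.35, adjusted p = 8.9e-08). In each of these 5 genes the highest neonatal library stayed under 6 CPM and the lowest adult library was above 15 CPM.

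Another 9 of the 15 largest decreases were of genes known from neutrophils and other blood myeloid cells: Ltf, Ngp, Camp, Lcn2, S100a9, Cd177, Chil3, Itgb2l and Mmp8. S100a9, a calcium-binding protein that fills the neutrophil cytosol, had 2.53, 2.50, 3.27 and 3.09 against 237, 304 and 448 CPM (log2 fold change -6.87 ± 0.24, adjusted p = 8.5e-09). Ltf, lactoferrin of neutrophil granules, had 0.844, 1.63, 1.26 and 1.46 against 189, 248 and 396 CPM (log2 fold change -7.74 ± 0.31, adjusted p = 1.8e-08). The adult libraries were ordered alike for both, with library 21 lowest and library 23 highest. Over the list of neutrophil markers, 8 of the 9 members tested fell, and their summed level was 9.61, 12.2, 11.7 and 12.5 CPM in the neonatal CD11c+ against 903, 1133 and 1824 CPM in the adult libraries. The part of neutrophil RNA in the lower level of these genes was not tested. In neonatal CD11c− microglia S100a9 had 64.03, 99.3, 508 and 128 CPM in libraries 17 to 20, which lies between the other groups in 3 libraries and above the adult ones in library 19. Genes under 1 CPM in the neonatal libraries pass the filter only through all 3 adult libraries, and without any 1 of these 4 of the neutrophil markers were left to fall.

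**Figure D2:**
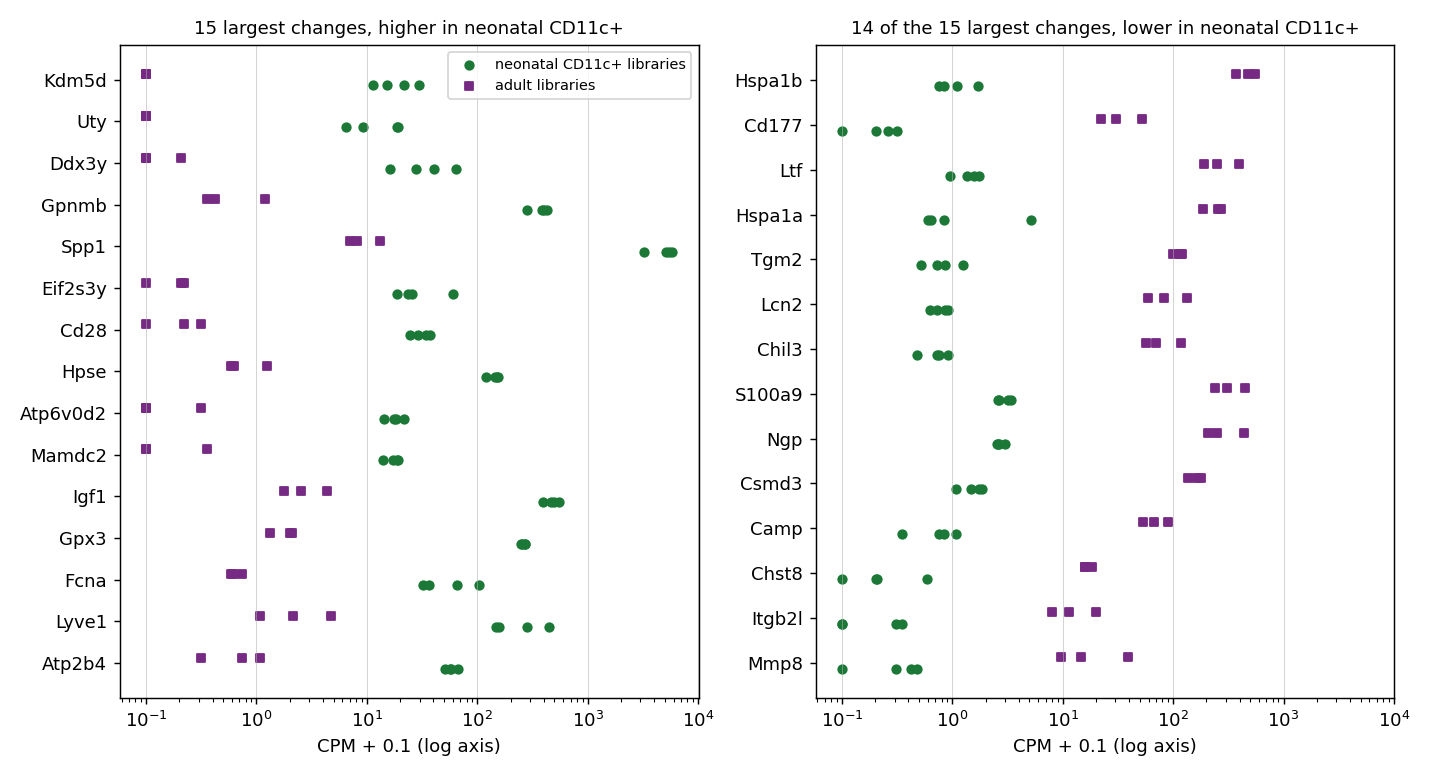
The 15 genes with the largest increases (left) and 14 of the 15 with the largest decreases (right), 1 gene per row, with the level in each neonatal CD11c+ library (circles) and each adult library (squares) in CPM with 0.1 added on a log axis. The circles and squares of each row do not overlap, and Hspa1b spans 0.652 to 1.63 CPM in the neonatal and 375 to 552 CPM in the adult libraries.

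To describe the rest of the change, 46 lists of genes with a shared function or named for these cells in the study were counted. The lists were drawn up with earlier results of these libraries known, and the 3 lists of genes the study names were chosen on these samples, so their counts are a description. Outside the lists of the study, those of cell division, phagocytic microglia, the respiratory chain, lipid handling and the lysosome had the largest shares of members that rose. The MHC class II, homeostatic and TGF-β lists had the largest shares that fell. Counts are read against the 25.7% of all genes that rose and the 21.3% that fell.

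**Figure D3:**
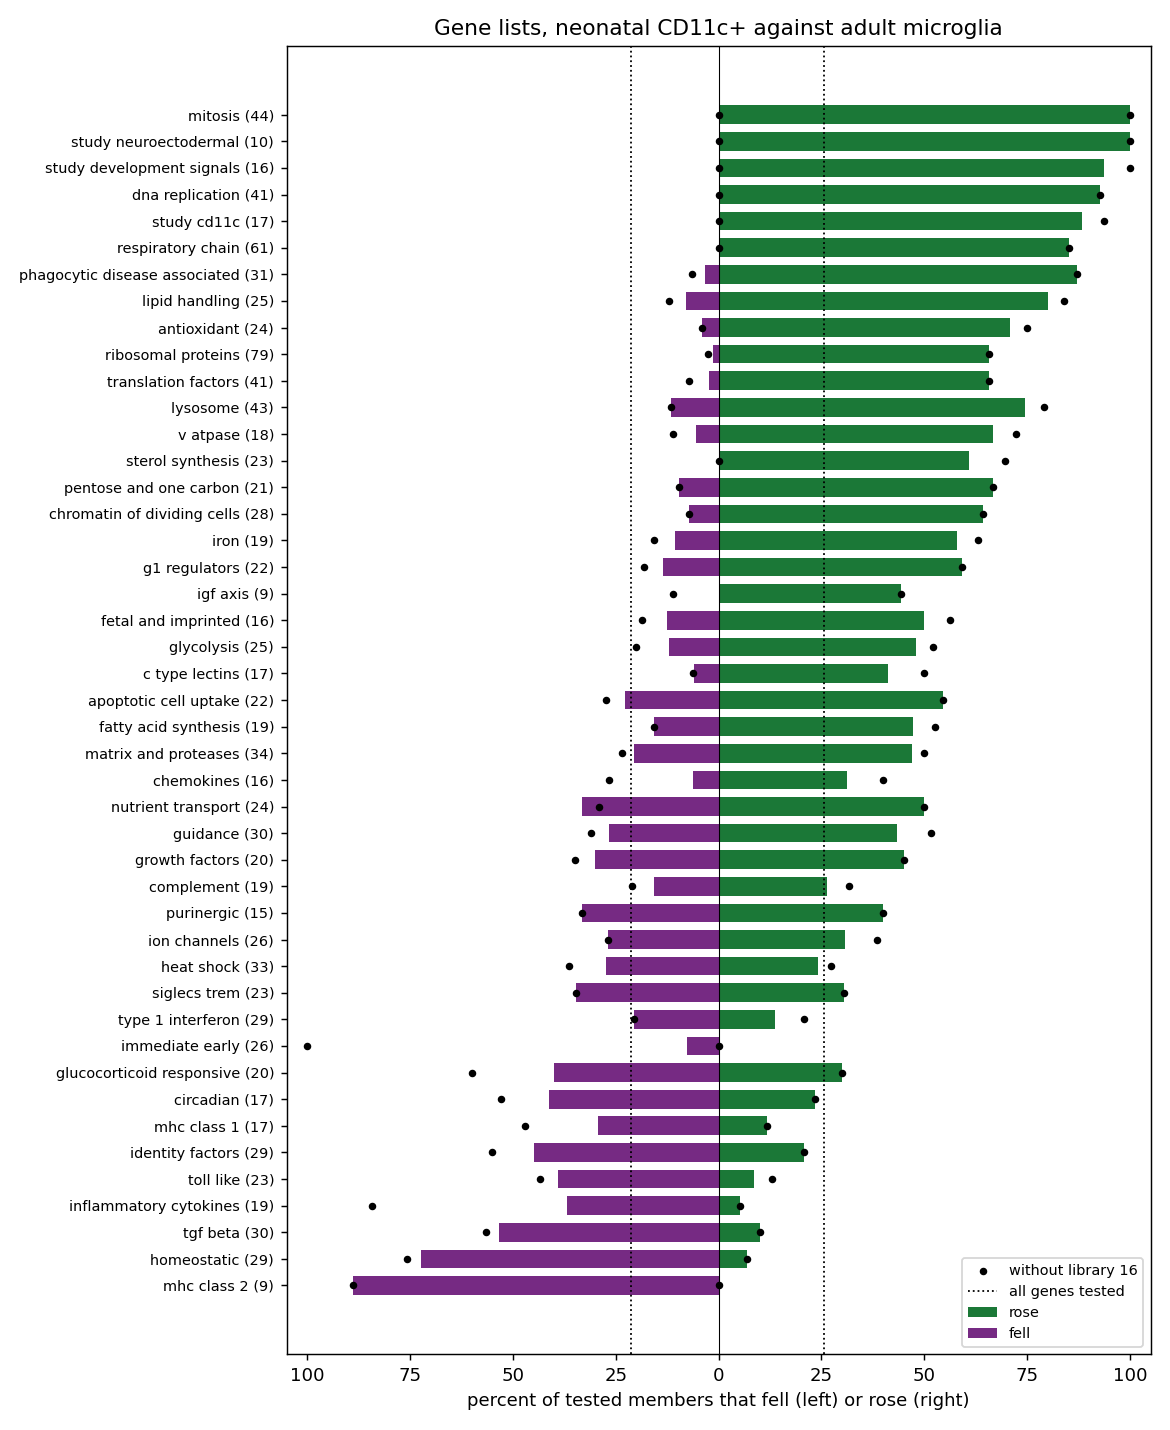
Percent of the tested members of each list of functions (without the sex-linked genes) that rose (right) or fell (left) in neonatal CD11c+ against adult microglia at an adjusted p of at most 0.01, with the number tested in brackets. Black points give the same without library 16, and dotted lines the percent of all genes tested (25.7 rose, 21.3 fell). The immediate early list has the largest gap between bar and point, 2 members fallen with library 16 and 26 without it.

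The study names 20 genes for CD11c+ microglia, and 17 of these passed the filter. Of these, 15 rose and none fell. The list was chosen on these samples and 10 of the 17 had an adult mean under 1 CPM, so that they passed the filter only by being higher in the neonatal cells, and the count is no independent evidence of the direction. Besides Itgax, Gpnmb, Spp1, Igf1 and Hpse, the list holds Colec12, a scavenger receptor of the collectin family, with 102, 92.1, 71.3 and 55.5 against 0.852, 1.38 and 0.643 CPM (log2 fold change 6.34 ± 0.32, adjusted p = 6.7e-08). Fabp5, which carries fatty acids in the cytosol, had 63.5, 62.4, 61.3 and 51.4 against 0.852, 0.637 and 0.900 CPM (log2 fold change 6.22 ± 0.16, adjusted p = 1.5e-09). Clec7a, the β-glucan receptor dectin-1, had 134, 145, 139.8 and 115 against 19.1, 25.7 and 25.7 CPM (log2 fold change 2.50 ± 0.12, adjusted p = 5.0e-08). Fam20c, the kinase that phosphorylates secreted proteins such as osteopontin, had 86.02, 103, 101 and 73.9 against 6.21, 9.45 and 10.3 CPM (log2 fold change 3.40 ± 0.17, adjusted p = 8.3e-08). For these 4 genes all neonatal libraries were above all adult ones, by 4 times or more at the closest pair. The members with low levels were less certain. Cpeb1, which binds mRNA tails, had 1.16, 1.41, 1.01 and 0.976 against 0.487, 0.637 and 0.772 CPM and did not pass (log2 fold change 0.86 ± 0.36, adjusted p = 0.064), although its libraries did not overlap. Saa3, an acute phase protein gene, had 2.96, 2.28, 0 and 1.14 against 0.122, 0.106 and 0 CPM and did not pass (ratio of pooled counts 21.7, 95% exact interval 5.73 to 184, adjusted p = 0.013), and rose when library 15 was left out (adjusted p = 4.2e-04 without library 15). Mmp12, the macrophage elastase, rose (2.64, 4.13, 2.51 and 7.48 against 0.852, 1.06 and 1.41 CPM, log2 fold change 1.87 ± 0.45, adjusted p = 0.0045), but not without 1 of 4 libraries (adjusted p = 0.011 without library 14, 0.022 without library 21, 0.021 without library 22 and 0.013 without library 23). The remaining members Ak4, Lox, Ntn1, Ahnak2 and Cspg4 rose, and Ccl5, Gm26902 and Stra6l did not pass the filter.

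The promoters of these genes were looked at for the AP-1 site, the letters TGACTCA bound by FOS and JUN proteins, on both strands of the RefSeq windows (GRCm38.p6) that run from 250 bases before to 50 bases after each gene's start. It is 1 of 6 motifs searched in 8 lists, all chosen with the lists in view, and 4 of the hits overlapped a hit of another motif. The site was in 3 of the 13 members with a window (23.1%), Itgax, Mmp12 and Gpnmb, and in 5.95% of all 27025 genes with a window and 4.35% of the genes tested among them. The stretch of 150 bases before the start of Itgax, chr7:128129400-128129549 on the plus strand, is shown because it belongs to the gene of the sorted protein, with the site (read here from the other strand, TGAGTCA) in capitals.
Itgax: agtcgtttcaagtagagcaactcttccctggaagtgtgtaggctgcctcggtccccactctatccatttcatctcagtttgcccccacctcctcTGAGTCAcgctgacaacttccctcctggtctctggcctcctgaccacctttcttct

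Genes that the study names for development were counted next. Of these 16 genes, 15 rose and none fell (median log2 fold change 3.80). An adult mean under 1 CPM was found for 8 of the 16, which passed the filter only by being higher in the neonatal cells. These genes too were chosen on these samples, so the count is no independent evidence of the direction. Csf1, the growth factor for microglia themselves, had 617, 713, 696 and 543 CPM in neonatal CD11c+ and 52.7, 46.1 and 49.9 CPM in adult microglia (log2 fold change 3.70 ± 0.12, adjusted p = 5.9e-09). Lgals1, galectin-1, a secreted lectin, had 99.9, 78.1, 64.1 and 79.2 against 3.04, 3.19 and 2.57 CPM (log2 fold change 4.76 ± 0.19, adjusted p = 1.6e-08). Bmp2, a bone morphogenetic protein, had 15.2, 9.56, 5.66 and 11.1 against 0, 0.637 and 0.514 CPM (log2 fold change 4.68 ± 0.54, adjusted p = 3.4e-05). In each the lowest neonatal library was more than 8 times the highest adult one. Adam19, a membrane protease, had 15.4, 11.6, 6.54 and 8.62 against 0.487, 1.27 and 1.80 CPM (log2 fold change 3.16 ± 0.41, adjusted p = 7.0e-05), and Mmp19, a matrix metalloproteinase, had 13.5, 14.1, 12.2 and 11.2 against 2.68, 2.02 and 2.57 CPM (log2 fold change 2.41 ± 0.17, adjusted p = 8.6e-07). Cxcl12, a chemokine that guides migrating cells, stood at only 3.59, 3.48, 3.77 and 2.93 against 0.487, 0.850 and 0.900 CPM (log2 fold change 2.19 ± 0.29, adjusted p = 9.6e-05), and the guidance genes Ntn1 (1.79, 2.61, 1.26 and 1.14 against 0.731, 0.212 and 0.129 CPM, log2 fold change 2.25 ± 0.55, adjusted p = 0.0052), Sema7a (1.69, 1.41, 1.63 and 0.488 against 0.122, 0.106 and 0.257 CPM, log2 fold change 2.98 ± 0.60, adjusted p = 0.0016) and Plxna2 (ratio of pooled counts 16.8, 95% exact interval 5.50 to 83.5, adjusted p = 1.9e-04) were also near the 1 CPM limit. The call of Ntn1 (adjusted p = 0.011 without library 13, 0.015 without library 14, 0.029 without library 22 and 0.025 without library 23) and that of Sema7a (adjusted p = 0.011 without library 22) were lost when some libraries were left out, and Sema7a did not pass the filter without library 13, 14 or 15. Mmp24 did not pass (log2 fold change 2.36 ± 0.75, adjusted p = 0.02), and rose without 1 library (adjusted p = 0.002 without library 16). Ptn, pleiotrophin, had no count in any adult library (6.65, 4.02, 3.39 and 1.14 CPM in the neonatal libraries, at least 34.6-fold higher, adjusted p = 5.6e-04).

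In the insulin-like growth factor system the change was narrow. Of 18 listed genes 9 passed the filter, and 4 of 9 genes tested rose and 0 fell (median log2 fold change 0.34), with 1 that fell without library 16. Besides Igf1, the binding protein gene Igfbp4 rose from 50.3, 51.7 and 47.2 CPM to 391, 319, 283 and 278 CPM (log2 fold change 2.68 ± 0.13, adjusted p = 4.8e-08). Igf1r, the receptor, rose less than 2-fold (40.95, 43.1, 40.98 and 44.6 against 25.4, 32.2 and 28.8 CPM, log2 fold change 0.55 ± 0.09, adjusted p = 4.9e-04). The insulin receptor gene Insr (98.6, 108, 83.7 and 93.9 against 95.1, 97.8 and 112 CPM, log2 fold change -0.08 ± 0.09, adjusted p = 0.48) and Igf2r (4.96, 6.41, 5.91 and 6.02 against 2.31, 4.46 and 7.07 CPM, log2 fold change 0.34 ± 0.30, adjusted p = 0.35) did not pass, and their libraries overlapped.

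Genes of phagocytic, lipid-laden microglia, which are known from white matter in development and from disease models, rose together. Of the 32 listed, 27 of the 31 members tested rose, 1 fell and 3 did not pass the test (median log2 fold change 1.76), and 27 rose and 2 fell without library 16. The list holds Spp1, Igf1, Gpnmb, Csf1 and Fabp5 above. Ctsb, the lysosomal protease cathepsin B, was the most abundant of them, with 15928, 16323, 17029 and 14402 CPM in neonatal CD11c+ and 2869, 2849 and 2467 CPM in adult microglia (log2 fold change 2.54 ± 0.09, adjusted p = 1.1e-08). Trem2, the lipid receptor that in mice is needed for this state in disease models, did not pass the test (1279, 1234, 1358 and 1389 against 1236, 1255 and 1068 CPM, log2 fold change 0.15 ± 0.09, adjusted p = 0.16). Ccl4, a chemokine, did not pass either (37.8, 47.05, 45.002 and 258 against 212, 166 and 137 CPM, log2 fold change -0.85 ± 0.59, adjusted p = 0.24). Its libraries 13 to 15 were all under 50 CPM and library 16 was above every adult library, and without library 16 it fell (log2 fold change -1.99, adjusted p = 5.1e-08).

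The receptors and adaptors that take up dying cells changed in both directions. Of the list, 12 of the 22 members tested rose, 5 fell and 5 did not pass the test (median log2 fold change 0.46), and without library 22 the number that fell was 3. Gas6, the bridge between phosphatidylserine on dying cells and the TAM receptors, had 1226, 1151, 1174 and 1069 CPM in neonatal CD11c+ and 216, 208 and 214 CPM in adult microglia (log2 fold change 2.44 ± 0.08, adjusted p = 6.7e-09). Scarb1 (157, 147, 164 and 145 against 57.5, 52.4 and 55.3 CPM, log2 fold change 1.48 ± 0.07, adjusted p = 4.8e-08) and Stab1 (4459.5, 4146, 3767 and 3139 against 1506, 1466 and 1473 CPM, log2 fold change 1.39 ± 0.12, adjusted p = 3.0e-06), scavenger receptors, rose 2- to 3-fold. Cd36, a scavenger receptor for oxidised lipids, had 139, 107, 53.3 and 70.3 against 2.07, 3.50 and 2.96 CPM (log2 fold change 5.01 ± 0.40, adjusted p = 2.1e-06) and was highest in libraries 13 and 14. Rac2, a GTPase of the phagocytic cup, rose (0.95 ± 0.07 on the log2 scale), while Elmo1, which helps to activate such GTPases, fell (216, 223, 209.9 and 203 against 519, 488 and 442 CPM, log2 fold change -1.18 ± 0.08, adjusted p = 4.2e-07). Dock2, its partner in leukocytes, did not pass (log2 fold change 0.07 ± 0.09, adjusted p = 0.52).

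Lipid handling rose as a group. Here 20 of the 25 members tested rose, 2 fell and 3 did not pass the test (median log2 fold change 2.29), 80.0% of the list. Lpl, lipoprotein lipase, which frees fatty acids from lipoproteins, had 1646, 1874, 1964 and 1385 CPM in neonatal CD11c+ and 60.4, 85.1 and 85.1 CPM in adult microglia (log2 fold change 4.48 ± 0.18, adjusted p = 1.7e-08). Plin2, which coats lipid droplets, had 381, 336, 356 and 369 against 28.98, 35.9 and 25.9 CPM (log2 fold change 3.57 ± 0.12, adjusted p = 6.0e-09), and Plin3, another droplet coat, had 84.8, 79.97, 80.3 and 78.9 against 17.5, 18.5 and 13.5 CPM (log2 fold change 2.29 ± 0.10, adjusted p = 3.1e-08). Apoc1, an apolipoprotein, went from 0.244, 0.531 and 0.129 CPM to 33.1, 29.01, 32.4 and 30.3 CPM (log2 fold change 6.57 ± 0.23, adjusted p = 7.8e-09). Nceh1, which hydrolyses cholesteryl esters, had 120.3, 125, 114 and 106 against 20.9, 22.8 and 25.1 CPM (log2 fold change 2.34 ± 0.09, adjusted p = 1.1e-08). All 5 were separated between the groups. The genes of the liver X receptors, which sense oxysterols, did not pass: Nr1h3 stood at 1.90, 2.06, 1.89 and 0.976 against 3.04, 1.70 and 1.54 CPM (log2 fold change -0.26 ± 0.34, adjusted p = 0.54) and Nr1h2 at 94.3, 92.7, 102 and 201 against 150.4, 131 and 121 CPM (log2 fold change -0.14 ± 0.24, adjusted p = 0.64), and Nr1h2 fell without library 16 (log2 fold change -0.48, adjusted p = 2.1e-04).

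Lysosomal hydrolases and membrane proteins rose by smaller folds at high levels. Of the lysosome list, 32 of the 43 members tested rose, 5 fell and 6 did not pass the test (median log2 fold change 0.59), and 14 were also past 2-fold. Ctsl, cathepsin L, had 4307, 4514, 4702 and 3735 CPM in neonatal CD11c+ and 795, 741 and 621 CPM in adult microglia (log2 fold change 2.59 ± 0.12, adjusted p = 3.7e-08), and Gusb, β-glucuronidase, had 1278, 1342, 1399 and 1202 against 382, 389.6 and 345 CPM (log2 fold change 1.81 ± 0.09, adjusted p = 5.9e-08). Lamp1, the main protein of the lysosome membrane, had 2914, 2926, 3073 and 2624 against 1050.2, 1024 and 882 CPM (log2 fold change 1.55 ± 0.09, adjusted p = 2.8e-07). Cd63, another membrane protein of lysosomes and exosomes, had 295, 284, 306 and 305 against 83.8, 76.2 and 65.5 CPM (log2 fold change 1.98 ± 0.09, adjusted p = 3.4e-08), and Npc2, which carries cholesterol out of the lysosome, had 929, 894, 939 and 892 against 425, 415 and 373 CPM (log2 fold change 1.18 ± 0.08, adjusted p = 5.2e-07). The 4 neonatal values of each gene lay within 1.3 times of one another. Arsa, arylsulfatase A, did not pass (76.7, 81.3, 82.2 and 76.5 against 83.04, 83.5 and 76.9 CPM, log2 fold change -0.04 ± 0.06, adjusted p = 0.64), nor did Laptm5 (log2 fold change 0.17 ± 0.09, adjusted p = 0.14). For the proton pump that acidifies the lysosome, 12 of 18 genes tested rose and 1 fell (median log2 fold change 0.62), and 2 fell without library 16. Atp6v1a, the catalytic subunit, had 248, 255, 237 and 244 against 79.02, 88.6 and 78.2 CPM (log2 fold change 1.59 ± 0.07, adjusted p = 2.9e-08) and Atp6v1b2 had 351, 331, 322 and 316 against 141, 147 and 139 CPM (log2 fold change 1.21 ± 0.07, adjusted p = 1.5e-07), whereas Atp6v0a2, a subunit of the membrane part, fell (133, 137, 140.4 and 138 against 245, 226 and 227 CPM, log2 fold change -0.76 ± 0.06, adjusted p = 1.9e-06).

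The CLEAR element, the letters TCACGTGA that are bound by TFEB and related factors and read the same on both strands, was in 5 of the 34 lysosome members with a promoter window (14.7%) and in 3 of the 12 proton pump members (25%), against 1.12% of all genes with a window and 2.28% of those tested. The promoter of Atp6v1a is shown for the catalytic subunit that rose, chr16:44139260-44139409 on the minus strand, with the element in capitals.
Atp6v1a: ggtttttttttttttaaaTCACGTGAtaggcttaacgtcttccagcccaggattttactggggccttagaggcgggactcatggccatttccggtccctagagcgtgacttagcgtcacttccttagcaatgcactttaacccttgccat

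Guidance receptors and matrix enzymes moved in both directions. Of the axon guidance genes 13 of 30 genes tested rose and 8 fell (median log2 fold change 0.68). Among them 8 had an adult mean under 1 CPM, and of the 19 with at least 5 CPM in 3 libraries 8 rose and 8 fell. The neuropilins, which are coreceptors for semaphorins and VEGF, rose: Nrp1 had 630.03, 693, 594 and 565 against 244, 245 and 244 CPM (log2 fold change 1.35 ± 0.09, adjusted p = 3.9e-07) and Nrp2 had 189, 203, 187 and 182 against 75.2, 73.6 and 80.1 CPM (log2 fold change 1.32 ± 0.07, adjusted p = 7.5e-08). The plexin genes Plxnd1 (105, 87.3, 71.8 and 71.3 against 2.68, 3.82 and 5.79 CPM, log2 fold change 4.37 ± 0.23, adjusted p = 8.9e-08) and Plxnc1 (72.2, 76.6, 62.7 and 59.2 against 3.53, 5.31 and 8.10 CPM, log2 fold change 3.59 ± 0.21, adjusted p = 1.9e-07), semaphorin receptors, rose by over 10-fold, and Plxna3 did not pass (log2 fold change 0.05 ± 0.12, adjusted p = 0.72). Efnb1, an ephrin ligand, fell (12.1, 11.6, 13.7 and 9.93 against 45.05, 50.8 and 44.4 CPM, log2 fold change -1.97 ± 0.11, adjusted p = 1.4e-07). Of the matrix proteins and proteases, 16 of 34 genes tested rose and 7 fell (median log2 fold change 0.27). Adam9, a membrane protease, rose (299, 306, 286 and 246 against 85.8, 80.2 and 74.6 CPM, log2 fold change 1.83 ± 0.09, adjusted p = 7.6e-08), while the collagen gene Col27a1 (116, 130.1, 144 and 145 against 633, 665 and 717 CPM, log2 fold change -2.33 ± 0.09, adjusted p = 1.8e-08) and the membrane matrix protease Mmp14 (15.2, 16.1, 18.1 and 16.6 against 67.9, 72.8 and 67.6 CPM, log2 fold change -2.08 ± 0.08, adjusted p = 1.7e-08) fell by about 4- to 5-fold.

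Growth factors and chemokines were mixed as well. Of the growth factors, 9 of 20 genes tested rose and 6 fell (median log2 fold change 0.01). Grn, progranulin of the lysosome, rose (3975, 4089, 4263 and 3725 against 1822, 1798 and 1533 CPM, log2 fold change 1.22 ± 0.09, adjusted p = 1.2e-06), as did Vegfb (log2 fold change 1.20 ± 0.09, adjusted p = 1.3e-06) and Bmp1, a protease that trims procollagen (log2 fold change 1.26 ± 0.10, adjusted p = 2.9e-06). Pdgfb, a growth factor for mural cells and oligodendrocyte precursors, fell (102, 98.6, 106 and 129 against 327, 330.04 and 343 CPM, log2 fold change -1.62 ± 0.09, adjusted p = 1.6e-07), and so did Kitl, the ligand of KIT (9.71, 9.56, 6.03 and 6.18 against 31.8, 33.2 and 33.4 CPM, log2 fold change -2.03 ± 0.16, adjusted p = 1.9e-06). Among the chemokines 5 of 16 genes tested rose and 1 fell (median log2 fold change 1.11), and 4 fell without library 16. Ccl6 (227, 234, 240.2 and 193 against 71.3, 61.8 and 65.6 CPM, log2 fold change 1.76 ± 0.09, adjusted p = 9.0e-08), Ccl9 (340.2, 363, 367 and 263 against 97.8, 96.95 and 84.6 CPM, log2 fold change 1.84 ± 0.12, adjusted p = 5.2e-07) and Ccl24 (29.2, 22.8, 18.2 and 17.7 against 3.41, 3.29 and 2.57 CPM, log2 fold change 2.83 ± 0.22, adjusted p = 1.9e-06) rose. Cxcl16, a membrane-bound chemokine, fell (18.9, 17.5, 17.98 and 31.1 against 45.8, 46.9 and 40.9 CPM, log2 fold change -1.08 ± 0.18, adjusted p = 3.9e-04).

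The genes used to recognise adult microglia were lower in the neonatal CD11c+ cells. Of the homeostatic list, 2 of the 29 members tested rose, 21 fell and 6 did not pass the test (median log2 fold change -0.74), and 2 rose and 22 fell without library 16. Tmem119, a membrane protein of unsettled function that marks adult microglia, had 341, 377, 420.2 and 327 CPM in neonatal CD11c+ and 2474, 2767 and 2399 CPM in adult microglia (log2 fold change -2.80 ± 0.10, adjusted p = 1.2e-08). Selplg, the ligand of P-selectin, had 368, 404, 434 and 376 CPM in neonatal CD11c+ and 4125, 4399 and 3513 CPM in adult microglia (log2 fold change -3.34 ± 0.10, adjusted p = 4.0e-09). P2ry12, the ADP receptor that steers microglial processes, had 1810.4, 2038, 2062 and 1666 against 4693, 4868 and 4543 CPM (log2 fold change -1.31 ± 0.09, adjusted p = 7.2e-07). The adult libraries were 2- to 12-fold above the neonatal ones for these 3 genes, with no overlap. Slc2a5, the fructose transporter, had 119.8, 129, 136 and 114 against 543, 513 and 452 CPM (log2 fold change -2.01 ± 0.09, adjusted p = 2.9e-08). Cst3, the protease inhibitor cystatin C, had 3123, 3025, 3445 and 3523 against 12441, 11453 and 9656 CPM (log2 fold change -1.77 ± 0.10, adjusted p = 1.6e-07), and Adgrg1, an adhesion receptor, had 329, 391, 388 and 337 against 1334, 1276 and 1083 CPM (log2 fold change -1.77 ± 0.10, adjusted p = 1.7e-07). The complement gene C1qb did not pass (2732, 2583, 2754 and 2986 against 3087, 3054 and 2555 CPM, log2 fold change -0.07 ± 0.09, adjusted p = 0.53), and neither did Ltc4s, the leukotriene C4 synthase gene (log2 fold change -0.07 ± 0.09, adjusted p = 0.51).

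Transcription factors that give macrophages their identity were split. Of the list, 6 of 29 genes tested rose and 13 fell (median log2 fold change -0.26). Mef2a, a factor of adult microglia, fell (344, 385, 367 and 405 against 868, 877 and 987 CPM, log2 fold change -1.28 ± 0.08, adjusted p = 5.2e-07). The genes of the MiT family, which act on lysosomal genes, rose: Tfec had 34.2, 27.1, 24.1 and 31.6 against 1.58, 1.49 and 1.54 CPM (log2 fold change 4.24 ± 0.19, adjusted p = 2.8e-08) and Mitf had 92.9, 101, 99.3 and 102 against 48.5, 53.6 and 52.9 CPM (log2 fold change 0.93 ± 0.06, adjusted p = 7.6e-07). Hif1a, the factor of the response to low oxygen, rose (244, 262, 242 and 236 against 154, 143 and 152 CPM, log2 fold change 0.72 ± 0.07, adjusted p = 6.0e-06), whereas Stat3 (log2 fold change -0.01 ± 0.06, adjusted p = 0.87) and Mef2c (log2 fold change -0.01 ± 0.08, adjusted p = 0.91) did not pass.

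The TGF-β pathway fell at several levels. Of its genes, 3 of the 30 members tested rose, 16 fell and 11 did not pass the test (median log2 fold change -0.51), and 7 were past 2-fold. The receptor gene Tgfbr1 had 1023, 1139, 1031 and 979.9 CPM in neonatal CD11c+ and 2671, 2705 and 2907 CPM in adult microglia (log2 fold change -1.40 ± 0.08, adjusted p = 1.7e-07). Eng, the coreceptor endoglin, had 59.95, 67.5, 69.3 and 71.6 against 232, 256 and 215 CPM (log2 fold change -1.81 ± 0.08, adjusted p = 3.6e-08). Smad3, which carries the signal to the nucleus, had 92.5, 97.9, 98.3 and 98.4 against 247, 244 and 225 CPM (log2 fold change -1.30 ± 0.06, adjusted p = 4.8e-08). The inhibitor genes Ski (332, 341, 354 and 336 against 631, 634 and 688 CPM, log2 fold change -0.93 ± 0.07, adjusted p = 1.2e-06) and Smurf1 (64.1, 61.9, 65.7 and 62.6 against 112, 137 and 132 CPM, log2 fold change -0.996 ± 0.07, adjusted p = 1.3e-06) fell as well, so members that pass the signal on and members that restrain it were both lower. The BMP receptor genes Bmpr2 (log2 fold change 0.05 ± 0.13, adjusted p = 0.78) and Bmpr1a (58.7, 62.4, 55.1 and 51.3 against 54.9, 59.8 and 56.6 CPM) did not pass.

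Cell division was the most complete change. Of the 44 mitosis genes, all were tested and all 44 rose past 2-fold (median log2 fold change 4.30), and 6 of them had an adult mean under 1 CPM. Top2a, the topoisomerase that untangles chromosomes before they part, had 216, 228, 263 and 237 CPM in neonatal CD11c+ and 8.64, 9.66 and 11.4 CPM in adult microglia (log2 fold change 4.57 ± 0.12, adjusted p = 1.5e-09). Ccna2, cyclin A2, had 57.1, 56.8, 64.5 and 58.4 against 2.31, 2.76 and 2.44 CPM (log2 fold change 4.55 ± 0.12, adjusted p = 1.5e-09). Every neonatal library was at least 15 times above every adult library for both. The kinetochore and spindle genes Cenpe (73.04, 83.2, 88.9 and 89.8 against 2.19, 2.87 and 2.96 CPM, log2 fold change 4.96 ± 0.13, adjusted p = 2.0e-09), Cenpf (75.5, 79.6, 81.5 and 77.3 against 2.80, 4.04 and 4.37 CPM, log2 fold change 4.39 ± 0.12, adjusted p = 2.5e-09), Kif11 (70.9, 79.3, 84.1 and 75.7 against 3.77, 3.19 and 4.24 CPM, log2 fold change 4.38 ± 0.12, adjusted p = 2.0e-09) and Tpx2 (54.99, 61.8, 69.4 and 58.7 against 2.56, 2.12 and 2.83 CPM, log2 fold change 4.61 ± 0.14, adjusted p = 3.8e-09) had log2 fold changes between 4.38 and 4.96. Even Ska1, the member with the largest adjusted p, rose (3.91, 3.91, 4.40 and 5.53 against 0.244, 0.212 and 0.129 CPM, log2 fold change 4.38 ± 0.36, adjusted p = 2.8e-06).

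The promoters of the mitosis genes shared 2 motifs. The cell cycle homology region, the letters TTTGAA on either strand, was in 27 of the 35 members with a window (77.1%) and in 20.2% of all genes and 14.1% of the tested genes with a window. In 25 of the 27 it lay within 50 bases of the start. The CCAAT box, the letters CCAAT on either strand, which NF-Y binds, was in 25 of the 35 (71.4%) against 41.1% of all genes and 43.1% of those tested, and 22 held both. The list of DNA replication genes held TTTGAA in 15.2% and CCAAT in 63.6% of its members. The 3 stretches of 150 bases before the start of Top2a (chr11:99024190-99024339), Cdk1 (chr10:69352913-69353062) and Cdc20 (chr4:118437344-118437493), all on the minus strand, are shown because they hold both motifs, which are in capitals (TTTGAA or, from the other strand, TTCAAA, and CCAAT or ATTGG). They are followed by 30 bases around the TTTGAA of Kif11 (chr19:37376351-37376380, plus strand) and of Cenpf (chr1:189688067-189688096, minus strand).
Top2a: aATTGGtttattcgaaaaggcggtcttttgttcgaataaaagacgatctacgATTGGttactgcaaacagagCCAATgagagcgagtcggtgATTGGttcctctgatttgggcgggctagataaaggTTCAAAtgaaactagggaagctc
Cdk1: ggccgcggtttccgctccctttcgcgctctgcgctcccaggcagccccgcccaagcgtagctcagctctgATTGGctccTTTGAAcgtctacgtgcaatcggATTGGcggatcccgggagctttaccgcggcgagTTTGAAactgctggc
Cdc20: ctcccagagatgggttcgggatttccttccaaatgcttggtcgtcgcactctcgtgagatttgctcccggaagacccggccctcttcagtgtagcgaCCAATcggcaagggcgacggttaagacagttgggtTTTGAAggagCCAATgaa
Kif11: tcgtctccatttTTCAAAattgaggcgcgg
Cenpf: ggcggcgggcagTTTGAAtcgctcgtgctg

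DNA replication rose nearly as completely, with 38 of 41 genes higher, none lower and a smaller median log2 fold change of 1.91. The helicase genes Mcm6 (136, 137, 144 and 130.5 against 20.1, 19.96 and 19.03 CPM, log2 fold change 2.80 ± 0.07, adjusted p = 1.3e-09), Mcm2 (90.4, 89.9, 89.6 and 97.1 against 13.9, 11.5 and 11.4 CPM, log2 fold change 2.90 ± 0.09, adjusted p = 3.8e-09) and Mcm5 (123, 109, 124 and 129.5 against 15.5, 13.8 and 11.96 CPM, log2 fold change 3.14 ± 0.10, adjusted p = 5.1e-09) rose, as did Pole, the polymerase of the leading strand (46.9, 48.7, 49.3 and 49.6 against 2.44, 2.12 and 2.32 CPM, log2 fold change 4.40 ± 0.11, adjusted p = 1.3e-09), and Rrm1, a subunit of the enzyme that makes deoxynucleotides (119, 114, 115 and 115 against 23.6, 24.7 and 24.2 CPM, log2 fold change 2.26 ± 0.06, adjusted p = 1.9e-09). Adult libraries held 11 to 25 CPM of these helicase genes and of Rrm1. Gins3 did not pass (log2 fold change 0.37 ± 0.21, adjusted p = 0.15). Pcna, the sliding clamp, did not pass (71.9, 74.6, 73.8 and 141 against 75.4, 62.8 and 56.98 CPM, log2 fold change 0.46 ± 0.23, adjusted p = 0.1), and library 16 was the highest of the 7 for it. Without libraries 16 and 21 together it rose slightly (log2 fold change 0.27, adjusted p = 0.0082), and without library 16 alone it did not pass (log2 fold change 0.18, adjusted p = 0.11).

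The regulators of entry into the cycle were split, as 13 of 22 genes tested rose and 3 fell (median log2 fold change 0.88). E2f1, which turns on replication genes, had 57.7, 53.6, 60.2 and 61.2 against 3.77, 3.93 and 2.57 CPM (log2 fold change 4.07 ± 0.13, adjusted p = 6.2e-09), and Ccne1, cyclin E1, had 13.7, 11.95, 16.5 and 11.9 against 0.731, 0.531 and 0.643 CPM (log2 fold change 4.39 ± 0.24, adjusted p = 1.1e-07). Cdkn2c, an inhibitor of CDK4 and CDK6, rose as well (33.4, 33.9, 39.7 and 37.3 against 4.02, 4.35 and 3.99 CPM, log2 fold change 3.12 ± 0.12, adjusted p = 1.3e-08), and Cdk4 itself rose (149.8, 136, 149.8 and 146 against 64.5, 62.7 and 51.8 CPM, log2 fold change 1.28 ± 0.08, adjusted p = 4.8e-07). Ccnd1, cyclin D1 (114, 114, 119.8 and 109 against 104, 128 and 123 CPM, log2 fold change -0.05 ± 0.08, adjusted p = 0.58), and Rb1 (92.1, 104, 93.3 and 97.6 against 92.5, 100.1 and 109 CPM, log2 fold change -0.05 ± 0.07, adjusted p = 0.55) did not pass, and their libraries overlapped. Of the chromatin proteins of dividing cells, 18 of 28 genes tested rose and 2 fell (median log2 fold change 1.53). The smallest adjusted p-values were of the condensin genes Smc2 (99.2, 103, 96.3 and 96.7 against 15.3, 17.5 and 16.3 CPM, log2 fold change 2.59 ± 0.07, adjusted p = 2.5e-09), Smc4 (log2 fold change 2.39 ± 0.08, adjusted p = 6.0e-09), Ncapd2 (log2 fold change 3.32 ± 0.12, adjusted p = 1.0e-08) and Ncapg (log2 fold change 4.81 ± 0.19, adjusted p = 1.4e-08), and of Lmnb1, lamin B1 (log2 fold change 2.70 ± 0.10, adjusted p = 1.2e-08).

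Genes that are known from the fetus were read in the neonatal cells. Igf2bp3, an RNA-binding protein of fetal tissues, had 63.8, 53.4, 59.2 and 59.2 CPM in neonatal CD11c+ and 1.10, 0.743 and 0.900 CPM in adult microglia (log2 fold change 5.999 ± 0.15, adjusted p = 1.3e-09). Lin28b, which blocks the maturation of let-7 microRNAs, had 5.91, 5.87, 6.16 and 4.72 against 0, 0.106 and 0.129 CPM (ratio of pooled counts 72.9, 95% exact interval 19.9 to 606, adjusted p = 9.3e-07), and the imprinted RNA H19 had 4.54, 4.45, 2.26 and 2.60 against 0.122, 0 and 0 CPM (ratio of pooled counts 91.5, 95% exact interval 16.1 to 3643, adjusted p = 3.1e-05). Both had at most 2 counts over the adult libraries. Cdkn1c, an imprinted inhibitor of the cell cycle, fell (5.07, 3.69, 5.28 and 3.42 against 12.3, 12.1 and 13.9 CPM, log2 fold change -1.53 ± 0.17, adjusted p = 2.5e-05). Of the 25 genes of this list 16 passed the filter, and 8 of these rose and 2 fell. Of the 16, 6 had an adult mean under 1 CPM and passed only through the neonatal libraries, and of the 10 that had at least 5 CPM in 3 libraries 4 rose and 2 fell. The 8 became 5 when library 14, 15, 22 or 23 was left out.

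Ribosome and mitochondrial energy genes rose broadly, by about 2-fold or less at the median. Of the ribosomal protein genes 52 of 79 genes tested rose and 1 fell (median log2 fold change 1.13), of the translation factors 27 of 41 genes tested rose and 1 fell (median log2 fold change 0.55), and of the respiratory chain 52 of 61 genes tested rose and 0 fell (median log2 fold change 0.88). Rplp0, a protein of the large ribosomal subunit, had 357, 338, 354 and 423 CPM in neonatal CD11c+ and 129.9, 119 and 113 CPM in adult microglia (log2 fold change 1.61 ± 0.09, adjusted p = 2.3e-07), and Rps26 of the small subunit had 77.7, 80.2, 79.9 and 79.6 against 22.4, 23.8 and 25.9 CPM (log2 fold change 1.72 ± 0.07, adjusted p = 2.0e-08). Without library 16, 2 ribosomal and 3 translation genes fell. Ribosomal protein genes have many near-identical copies in the genome, so reads may be split or lost, and Rpl10a (log2 fold change 0.01 ± 0.12, adjusted p = 0.97) did not pass. Pabpc1, which binds mRNA tails, had 719, 751, 766 and 832 against 339, 319 and 304 CPM (log2 fold change 1.26 ± 0.08, adjusted p = 4.7e-07), and Eef1b2, an elongation factor, had 282, 261, 268 and 291 against 119, 110.3 and 90.7 CPM (log2 fold change 1.37 ± 0.10, adjusted p = 7.7e-07). Cox4i1, a subunit of cytochrome c oxidase, had 206, 194, 209 and 228 against 73.1, 70.1 and 60.2 CPM (log2 fold change 1.62 ± 0.09, adjusted p = 1.1e-07), and Sdhd of complex II had 97.7, 89.97, 98.4 and 97.95 against 49.2, 51.6 and 42.96 CPM (log2 fold change 1.00 ± 0.08, adjusted p = 1.4e-06). Ndufv1 of complex I did not pass (log2 fold change -0.04 ± 0.07, adjusted p = 0.67).

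Glycolysis rose in part, with 12 of 25 genes higher and 3 lower (5 lower without library 16). Pkm, pyruvate kinase, had 570.1, 564, 609 and 554 against 194, 187 and 172 CPM (log2 fold change 1.64 ± 0.08, adjusted p = 4.5e-08), Ldha, lactate dehydrogenase A, had 295, 294, 322 and 260.2 against 94.6, 88.3 and 81.9 CPM (log2 fold change 1.73 ± 0.09, adjusted p = 8.3e-08) and Tpi1, triose phosphate isomerase, had 207, 202, 218 and 174 against 62.9, 62.8 and 57.2 CPM (log2 fold change 1.72 ± 0.09, adjusted p = 7.7e-08). All 3 rose about 3-fold. Pfkfb4, which sets the level of fructose 2,6-bisphosphate, fell (56.6, 49.005, 57.3 and 59.1 against 110.3, 119 and 106 CPM, log2 fold change -1.02 ± 0.08, adjusted p = 1.3e-06), and its relative Pfkfb3 did not pass (log2 fold change 0.05 ± 0.07, adjusted p = 0.56). Of the pentose and one-carbon pathways, 14 of 21 genes tested rose and 2 fell (median log2 fold change 0.58). Psat1, an enzyme of serine synthesis, had the largest change there (249, 246, 269 and 242 against 21.9, 19.3 and 21.5 CPM, log2 fold change 3.59 ± 0.08, adjusted p = 7.9e-10), and Tyms, thymidylate synthase, rose as well (25.3, 26.1, 22.5 and 24.7 against 5.60, 7.96 and 7.07 CPM, log2 fold change 1.84 ± 0.13, adjusted p = 1.0e-06). Gart (55.4, 55.5, 57.6 and 48.8 against 47.8, 48.7 and 49.4 CPM, log2 fold change 0.16 ± 0.07, adjusted p = 0.082) of purine synthesis did not pass.

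Sterol synthesis rose without exception among those that passed, 14 of 23 higher and none lower, mostly by under 2-fold. Sqle, squalene epoxidase, rose by more than that, with 12.5, 13.9, 16.3 and 9.76 against 3.29, 3.50 and 3.34 CPM (log2 fold change 1.96 ± 0.20, adjusted p = 1.1e-05). CCAAT boxes were in 15 of the 16 members of this list with a promoter window (93.8%). Fatty acid enzymes rose more, Scd2 with 857, 959.6, 978 and 745 against 132, 124 and 125 CPM (log2 fold change 2.80 ± 0.11, adjusted p = 1.6e-08) and Fasn, fatty acid synthase, with 156, 166, 164 and 169 against 53.9, 45.4 and 55.6 CPM (log2 fold change 1.67 ± 0.08, adjusted p = 5.0e-08), although only 9 of 19 rose. Srebf1, the factor that drives them, rose (135, 145, 154 and 152 against 72.3, 72.7 and 77.7 CPM, log2 fold change 0.98 ± 0.07, adjusted p = 7.5e-07), while Mlxipl, the sugar-responsive factor ChREBP, fell (134, 147, 167 and 172 against 512, 522 and 486 CPM, log2 fold change -1.71 ± 0.09, adjusted p = 1.2e-07).

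Transporters, iron and redox genes were counted as well. Of the nutrient transporters 12 of 24 genes tested rose and 8 fell (median log2 fold change 0.25). Slc6a6, the taurine transporter, rose (746, 801, 753 and 673 against 291, 298 and 298 CPM, log2 fold change 1.33 ± 0.08, adjusted p = 2.8e-07), and Slc1a3, a glutamate transporter that astrocytes also express, fell (32.9, 30.3, 27.4 and 18.7 against 128, 120.3 and 126 CPM, log2 fold change -2.17 ± 0.14, adjusted p = 3.9e-07). Of the iron genes 11 of 19 genes tested rose and 2 fell (median log2 fold change 0.65). Hmox1, heme oxygenase, had 204, 178, 157 and 262 against 55.4, 50.1 and 40.5 CPM (log2 fold change 2.04 ± 0.17, adjusted p = 3.5e-06), and Slc48a1, which moves heme out of the phagolysosome, had 79.8, 73.3, 70.6 and 72.1 against 37.99, 41.9 and 31.9 CPM (log2 fold change 0.99 ± 0.09, adjusted p = 8.3e-06). Of the antioxidant genes 17 of 24 genes tested rose and 1 fell (median log2 fold change 0.71), a single fall that was lost without library 14, 15, 22 or 23 and became 2 without library 13. After Gpx3 the smallest adjusted p-values were of the peroxiredoxins Prdx4 (77.7, 76.7, 80.7 and 82.5 against 26.3, 22.4 and 21.6 CPM, log2 fold change 1.76 ± 0.08, adjusted p = 4.6e-08) and Prdx1 (114, 102, 103 and 107 against 38.4, 38.4 and 32.7 CPM, log2 fold change 1.55 ± 0.08, adjusted p = 6.8e-08). Keap1, the sensor that holds back NRF2, did not pass (log2 fold change -0.02 ± 0.07, adjusted p = 0.8).

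Antigen presentation was lower on the class II side. Of 9 MHC class II genes tested, 8 fell and none rose (median log2 fold change -1.53). H2-Aa, a chain of the peptide-binding molecule, had 2.01, 0.761, 0.880 and 2.77 CPM in neonatal CD11c+ and 9.50, 21.5 and 17.2 CPM in adult microglia (log2 fold change -3.38 ± 0.38, adjusted p = 2.8e-05). H2-DMa, which helps to load peptides, had 30.7, 32.6, 35.4 and 35.96 against 121, 133 and 100.1 CPM (log2 fold change -1.81 ± 0.10, adjusted p = 1.4e-07). The exception was Cd74, the invariant chain, at 59.2, 54.9, 51.8 and 102 against 51.4, 83.996 and 69.5 CPM (log2 fold change -0.04 ± 0.23, adjusted p = 0.89), with library 16 the highest of the 7. It did not pass without library 16 (log2 fold change -0.31, adjusted p = 0.065) and fell without libraries 16 and 21 together (log2 fold change -0.50, adjusted p = 2.5e-04). Class I genes moved less: 2 of 17 genes tested rose and 5 fell (median log2 fold change -0.32), and 8 fell without library 16. Of the 2 that rose, 1 was left when any 1 of the other 6 libraries was left out. H2-T23, a class Ib molecule, fell (58.6, 57.05, 55.8 and 57.1 against 131, 142 and 136 CPM, log2 fold change -1.26 ± 0.06, adjusted p = 2.9e-08) and B2m, the shared light chain, rose slightly (1790.5, 1782, 1793 and 1645 against 1379, 1401 and 1240.2 CPM, log2 fold change 0.39 ± 0.08, adjusted p = 0.0017).

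Sensors of microbes and mediators of inflammation fell more often than they rose. Of the Toll-like receptor pathway, 2 of 23 genes tested rose and 9 fell (median log2 fold change -0.27). Tlr3, the receptor for double-stranded RNA, had 42.9, 45.96, 45.1 and 36.6 CPM in neonatal CD11c+ and 174, 180.4 and 172 CPM in adult microglia (log2 fold change -2.04 ± 0.08, adjusted p = 1.3e-08), and Tlr12, a receptor for profilin of parasites, had 12.98, 12.7, 14.8 and 12.2 against 82.9, 83.4 and 69.96 CPM (log2 fold change -2.58 ± 0.10, adjusted p = 1.3e-08). Tlr1 rose (132, 141, 142 and 115 against 66.96, 79.01 and 66.7 CPM, log2 fold change 0.90 ± 0.09, adjusted p = 1.4e-05) and Irak4 did not pass (log2 fold change 0.07 ± 0.09, adjusted p = 0.55). Of the inflammatory cytokines and their regulators, 1 of 19 genes tested rose and 7 fell (median log2 fold change -0.63), and 16 fell without library 16. Il6, interleukin-6, had 0.317, 0.652, 0.126 and 0.651 against 4.14, 6.48 and 7.97 CPM (log2 fold change -3.81 ± 0.40, adjusted p = 1.7e-05), and Socs3, the brake on its receptor, had 27.8, 34.2, 36.6 and 166 against 1246, 836 and 950.2 CPM (log2 fold change -3.95 ± 0.57, adjusted p = 1.6e-04), with library 16 above the other neonatal libraries but far under the adult ones. Il1rn, the blocker of the interleukin-1 receptor, rose (11.4, 15.1, 12.7 and 7.65 against 1.34, 1.27 and 2.44 CPM, log2 fold change 2.82 ± 0.30, adjusted p = 1.7e-05). Of the type I interferon genes, 4 of 29 genes tested rose and 6 fell (median log2 fold change -0.01), a share near or under that of all genes in both directions, with Bst2, tetherin, higher (112, 93.9, 91.01 and 93.2 against 48.5, 49.4 and 44.2 CPM, log2 fold change 1.04 ± 0.09, adjusted p = 2.9e-06) and Ddx58, the sensor RIG-I, lower (35.04, 29.99, 26.6 and 23.3 against 63.3, 64.9 and 66.7 CPM, log2 fold change -1.17 ± 0.12, adjusted p = 1.2e-05).

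Complement and surface receptors were mixed. Of the complement list 5 of 19 genes tested rose (26.3%) and 3 fell (15.8%, median log2 fold change 0.10). These shares were near or under the 25.7% and 21.3% of all genes tested. C2 rose (22.3, 20.9, 21.5 and 16.1 against 0.731, 0.531 and 0.386 CPM, log2 fold change 5.16 ± 0.23, adjusted p = 3.1e-08) and so did C3ar1, the receptor for C3a (541, 569, 509.9 and 452 against 249.8, 265 and 249.9 CPM, log2 fold change 1.02 ± 0.09, adjusted p = 4.3e-06). The partners of complement receptors went the other way from Itgax: Itgb2, the shared β chain CD18, fell (269, 288, 296 and 281 against 631, 676 and 617 CPM, log2 fold change -1.18 ± 0.07, adjusted p = 2.6e-07), and Itgam, the α chain of complement receptor 3 that was also used in the sort, fell (1435, 1616, 1467 and 1375 against 2419.7, 2364 and 2194 CPM, log2 fold change -0.66 ± 0.08, adjusted p = 5.3e-05). C5ar1 did not pass (log2 fold change 0.01 ± 0.10, adjusted p = 0.91). Of the purinergic genes 6 of 15 genes tested rose and 5 fell (median log2 fold change 0.40). P2ry13, an ADP receptor, fell with P2ry12 (715, 819.7, 844 and 631 against 1559, 1667 and 1477 CPM, log2 fold change -1.06 ± 0.11, adjusted p = 1.3e-05), and Enpp1, an enzyme that breaks down ATP, rose (62.7, 65.1, 66.7 and 58.3 against 19.7, 19.5 and 18.1 CPM, log2 fold change 1.72 ± 0.08, adjusted p = 4.8e-08). P2rx7, the ATP-gated channel, did not pass (359, 383, 325 and 324 against 353, 376 and 369 CPM, log2 fold change -0.07 ± 0.08, adjusted p = 0.46).

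Of the Siglec and TREM family genes 7 of 23 genes tested rose and 8 fell (median log2 fold change -0.13), and without library 22 the number that fell was 4, without library 23 it was 5. Siglech fell (754, 781, 817 and 763 against 1739, 1705 and 1535 CPM, log2 fold change -1.09 ± 0.08, adjusted p = 8.8e-07) while Tyrobp, the adaptor DAP12, rose (876, 823, 820.4 and 886 against 479.7, 472 and 367 CPM, log2 fold change 0.95 ± 0.10, adjusted p = 1.9e-05). Of the C-type lectins 7 of 17 genes tested rose and 1 fell (median log2 fold change 0.63), and 2 fell without library 13. Mrc1, the mannose receptor, had 1829, 1465, 1085 and 959 against 35.4, 72.6 and 52.1 CPM (log2 fold change 4.64 ± 0.31, adjusted p = 5.5e-07), with the same order of libraries as Lyve1, and its relative Mrc2 fell (28.5, 40.9, 44.1 and 32.5 against 144, 163 and 150.3 CPM, log2 fold change -2.06 ± 0.13, adjusted p = 3.4e-07). Of the ion channels 8 of 26 rose (30.8%) and 7 fell (26.9%), shares near the 25.7% and 21.3% of all genes tested. Trpm2, a calcium channel opened by oxidative stress, had one of the 4 smallest adjusted p-values of all genes (18.9, 20.8, 19.2 and 22.1 against 214, 207 and 218 CPM, log2 fold change -3.40 ± 0.07, adjusted p = 6.3e-10), and Kcnj10, a potassium channel known from glia, rose (33.99, 34.9, 34.1 and 29.8 against 8.64, 10.9 and 11.2 CPM, log2 fold change 1.69 ± 0.12, adjusted p = 6.8e-07).

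Immediate early genes, which are switched on within minutes of a stimulus and also while tissue is taken apart, depended on library 16 and on the filter. With all libraries 0 of 26 genes tested rose and 2 fell (median log2 fold change -1.48), and without library 16 all 26 fell (median -2.98). With all libraries and no filter on low counts 18 of 30 fell, and with a filter of 5 CPM in 3 libraries 2 of 25 did. For all 26 genes libraries 13 to 15 were under every adult library and library 16 was the highest of the neonatal libraries, and for 8 genes it was above every adult library. Without libraries 16 and 21 together 23 fell, and with all 17 libraries in the fit 7 fell. Jun, a subunit of AP-1, had 529.5, 780.4, 851 and 4709 CPM in neonatal CD11c+ and 9096, 5362 and 6452 CPM in adult microglia (log2 fold change -2.02 ± 0.65, adjusted p = 0.021). Libraries 13 to 15 were 6 times or more under the lowest adult library, and library 16 was close to it. Without library 16 Jun fell (log2 fold change -3.27, adjusted p = 1.8e-08). Ier2 had 78.002, 77.8, 83.6 and 976 against 522, 428 and 398 CPM (log2 fold change -0.57 ± 0.82, adjusted p = 0.57), with library 16 above all adult libraries and the other neonatal libraries under them, and without library 16 it fell (log2 fold change -2.49, adjusted p = 2.7e-10). Egr2 showed the same pattern (15.3, 16.3, 18.1 and 79.2 against 54.5, 33.6 and 25.3 CPM, log2 fold change -0.28 ± 0.54, adjusted p = 0.68, and without library 16 log2 fold change -1.19, adjusted p = 3.5e-04). Klf4 fell (30.8, 39.8, 24.01 and 228 against 1494, 263 and 416 CPM, log2 fold change -3.19 ± 0.82, adjusted p = 0.0067), and its call was lost in 5 of the 7 fits that leave out 1 library (adjusted p = 0.02 without library 13, 0.023 without library 14, 0.018 without library 15, 0.04 without library 21 and 0.013 without library 23). In the adult group library 21 was the highest for Klf4. Fosl2, a slower member of the FOS family, fell in every fit (12.3, 14.7, 14.1 and 15.1 against 27.3, 28.8 and 30.7 CPM, log2 fold change -1.04 ± 0.10, adjusted p = 8.5e-06). Whether the handling of the tissue differed between the pools was not tested.

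**Figure D4:**
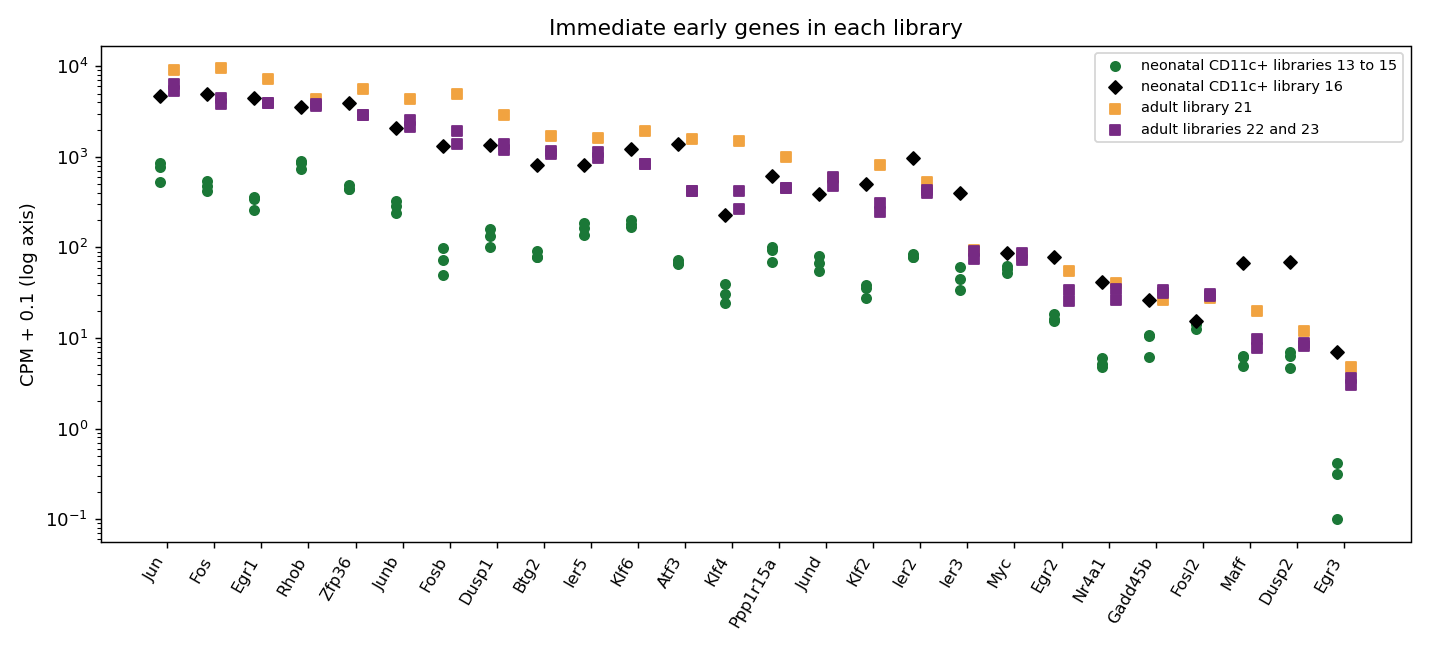
Level of each of the 26 immediate early genes tested, in each library, in CPM with 0.1 added on a log axis, genes in order of their adult mean. Library 16 (diamonds) lies at or above the lowest adult library (squares) for 17 genes, such as Ier2 at 976 CPM, while libraries 13 to 15 (circles) lie under the adult libraries for all 26.

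The cAMP response element, the letters TGACGTCA that CREB binds and that read the same on both strands, was in 4 of the 22 immediate early genes with a promoter window (18.2%), Dusp1, Btg2, Maff and Ppp1r15a, against 2.03% of all genes and 3.65% of the genes tested. The sites, with 30 bases each, are shown to let them be compared: Dusp1 at chr17:26508597-26508626 (minus strand), Btg2 at chr1:134079303-134079332 (minus strand), Maff at chr15:79347480-79347509 (plus strand) and Ppp1r15a at chr7:45526262-45526291 (minus strand), with the element in capitals.
Dusp1: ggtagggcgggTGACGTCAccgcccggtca
Btg2: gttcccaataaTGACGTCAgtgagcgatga
Maff: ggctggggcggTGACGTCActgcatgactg
Ppp1r15a: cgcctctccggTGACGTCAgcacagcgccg

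Heat shock genes moved in both directions, in shares near those of all genes tested (25.7% rose and 21.3% fell). Of the list 8 of 33 genes tested rose and 9 fell (median log2 fold change -0.09), and the number that rose was 5 without library 23 and 4 with all 17 libraries in the fit. Besides the HSP70 pair, the largest decrease was of Hspb1, the small chaperone HSP27, which had 0.211, 0.109, 0.503 and 2.12 against 16.9, 7.96 and 10.7 CPM (log2 fold change -4.21 ± 0.55, adjusted p = 7.8e-05). Hsf1, the factor that turns them on, fell too (43.3, 43.2, 45.3 and 43.9 against 75.6, 70.8 and 61.5 CPM, log2 fold change -0.66 ± 0.08, adjusted p = 4.2e-05). Hspd1, the chaperonin of mitochondria, rose (60.2, 64.3, 64.4 and 61.3 against 41.2, 31.8 and 34.98 CPM, log2 fold change 0.80 ± 0.09, adjusted p = 2.9e-05). For Hspa1a and Hspb1 library 16 was the highest neonatal library, and it was still under every adult library. The heat shock element, the letters GAANNTTC on both strands, was in 12 of the 26 members with a window (46.2%) and in 9.04% of all genes and 6.93% of those tested. The stretches of 150 bases before Hspa1b (chr17:34959239-34959388, minus strand) and Hspb1 (chr5:135887769-135887918, plus strand) are shown because these genes fell most beside Hspa1a, with the elements in capitals. Of the 250 bases before the starts of Hspa1a and Hspa1b, 247 were the same.
Hspa1b: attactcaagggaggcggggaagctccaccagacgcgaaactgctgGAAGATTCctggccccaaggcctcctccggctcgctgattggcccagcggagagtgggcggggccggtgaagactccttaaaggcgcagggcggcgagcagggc
Hspb1: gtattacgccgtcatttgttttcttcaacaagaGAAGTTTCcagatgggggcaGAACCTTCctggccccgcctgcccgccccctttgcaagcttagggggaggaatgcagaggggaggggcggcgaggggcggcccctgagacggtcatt

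Genes that respond to glucocorticoids changed in both directions, as 6 of 20 genes tested rose and 8 fell (median log2 fold change -0.87), and 12 fell without library 16. Nr3c1, the glucocorticoid receptor, fell (131, 138, 122 and 125 against 284, 266 and 309 CPM, log2 fold change -1.15 ± 0.07, adjusted p = 4.6e-07), as did Anxa1, annexin A1 (2.53, 1.96, 0.503 and 0.976 against 30.2, 36.4 and 58.6 CPM, log2 fold change -4.72 ± 0.35, adjusted p = 1.2e-06). The adult libraries were ordered for Anxa1 as for S100a9 and Ltf, with library 21 lowest and library 23 highest. The part of neutrophil RNA in the level of Anxa1 was not tested. Hif3a (17.6, 20.1, 17.3 and 16.3 against 1.70, 2.23 and 1.54 CPM, log2 fold change 3.27 ± 0.17, adjusted p = 8.4e-08) and Mt2, metallothionein 2 (14.1, 13.3, 13.3 and 14.97 against 2.56, 1.81 and 1.16 CPM, log2 fold change 2.90 ± 0.21, adjusted p = 9.5e-07), rose. Of the circadian genes 4 of 17 genes tested rose and 7 fell (median log2 fold change -0.34), and 4 fell without library 21. Arntl, which encodes the clock factor BMAL1, fell (11.5, 11.1, 10.4 and 8.95 against 23.7, 21.7 and 21.9 CPM, log2 fold change -1.08 ± 0.11, adjusted p = 1.3e-05), and Cry1, which represses it, rose (14.2, 11.1, 12.8 and 14.2 against 5.72, 5.63 and 7.85 CPM, log2 fold change 1.03 ± 0.16, adjusted p = 3.0e-04). The time of day at which cells were taken is not given in the sources used here.

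The 10 genes of neural precursors that the study names all rose. They were chosen on these samples, and 8 of them had an adult mean under 1 CPM and so passed the filter only by being higher. Nes, nestin, was the only one above 100 CPM (112, 129.8, 142 and 167 CPM in neonatal CD11c+ and 20.2, 18.9 and 16.8 CPM in adult microglia, log2 fold change 2.88 ± 0.14, adjusted p = 5.4e-08), followed by Vim, vimentin (93.6, 83.99, 66.4 and 83.8 against 13.3, 19.1 and 18.6 CPM, log2 fold change 2.27 ± 0.15, adjusted p = 5.2e-07), and Fabp5. The others were low: Dcx, doublecortin of young neurons, had 7.92, 6.95, 4.90 and 1.95 against 0, 0 and 0.129 CPM (ratio of pooled counts 147, 95% exact interval 26.1 to 5847, adjusted p = 6.0e-05), and Sox11, a factor of young neurons, had 3.80, 4.02, 2.26 and 1.46 against 0, 0 and 0 CPM (at least 25.8-fold higher, adjusted p = 1.9e-04). Fabp7, of radial glia, had 14.1, 4.67, 2.51 and 6.02 against 0, 0.106 and 0 CPM (ratio of pooled counts 181, 95% exact interval 32.2 to 7194, adjusted p = 2.3e-04), Gap43 had 4.33, 3.04, 2.64 and 2.44 against 0, 0.106 and 0.129 CPM (ratio of pooled counts 40.7, 95% exact interval 10.99 to 340.4, adjusted p = 2.0e-05), Gfap had 3.06, 1.30, 1.63 and 4.56 against 0.244, 0.212 and 0 CPM (log2 fold change 3.90 ± 0.72, adjusted p = 9.1e-04), Pax6 had 3.48, 2.61, 2.01 and 0.651 against 0, 0.212 and 0 CPM (ratio of pooled counts 29.8, 95% exact interval 7.99 to 251, adjusted p = 8.8e-04) and Neurod1 had 4.75, 3.37, 3.65 and 0.976 against 0.122, 0.106 and 0 CPM (ratio of pooled counts 43.02, 95% exact interval 11.6 to 359.6, adjusted p = 2.0e-04). For Dcx, Sox11, Pax6 and Neurod1 library 16 was the lowest neonatal library. With the 1 member at its bound in place of the fitted value, the median log2 fold change of these 10 genes was 4.89 in place of 5.11.

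Summed levels of neuron, neural progenitor and oligodendrocyte precursor markers were higher in the neonatal libraries too. The summed level of the neuron markers was 10.3 to 24.5 CPM against 1.27 to 2.32 CPM, of the neural progenitor markers (which include 5 of the genes just named) 151 to 179 CPM against 17.2 to 20.6 CPM, and of the oligodendrocyte precursor markers 8.95 to 17.9 CPM against 0.956 to 1.16 CPM. Most of the neural progenitor sum was Nes, and without it the sum was 12.2 to 39.2 CPM against 0.365 to 1.06 CPM. The neuron sum without Map2 was 8.62 to 15.1 CPM against 0.743 to 1.67 CPM. Without Cspg4 the oligodendrocyte precursor sum was 3.74 to 14.1 CPM against 0.212 to 0.772 CPM. Of the members tested, 4 of 4, 6 of 7 and 3 of 3 had an adult mean under 1 CPM and passed the filter through the neonatal libraries, so no count of them is read as a result. Among the neuron markers Nefl and Slc17a6 had no count in any adult library and no marker was at 0 in all neonatal libraries. The astrocyte sum was lower (36.4 to 62.5 CPM against 124 to 136 CPM) through Slc1a3, a glutamate transporter gene, while the other 9 members summed to 12.8 to 29.6 CPM in the neonatal and 3.93 to 7.67 CPM in the adult libraries. Of the 7 astrocyte markers tested 2 rose and 1 fell (median log2 fold change 1.77). The sum of oligodendrocyte markers was 109.5 to 179 CPM against 155 to 167 CPM. The part of neural RNA in the levels of the low genes was not tested.

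Markers of other cells that the gate could hold were counted in the same way. All 10 border macrophage markers rose, the summed level being 7885, 6641, 5366 and 4638 CPM in libraries 13 to 16 against 1554, 1583 and 1550.3 CPM in libraries 21 to 23. Most of the adult sum was Stab1, and without it the sum was 1499 to 3426 CPM against 47.97 to 117.7 CPM. F13a1 (620.3, 406, 169 and 182 against 5.24, 13.4 and 7.20 CPM, log2 fold change 5.30 ± 0.56, adjusted p = 1.7e-05) and Pf4 (134, 80.7, 47.9 and 63.6 against 0.609, 3.50 and 2.06 CPM, log2 fold change 5.27 ± 0.48, adjusted p = 6.1e-06) were highest in library 13 and lowest in libraries 15 and 16, as were Fcna, Lyve1, Cd36 and Mrc1. The part of border macrophages in the levels of these 6 genes was not tested. Of the monocyte markers 5 of 7 fell (5.91 to 8.48 CPM against 94.6 to 196 CPM, and 1 when any 1 adult library was left out, since low genes then missed the filter), with Ccr2 at 2.85, 2.61, 1.38 and 1.63 against 7.43, 8.07 and 11.6 CPM (log2 fold change -2.04 ± 0.27, adjusted p = 7.8e-05). The erythroid sum was 24.2 to 74.3 CPM against 1.29 to 4.50 CPM, highest in library 14, and 4 of the 5 members tested passed the filter through the neonatal libraries, with an adult mean under 1 CPM. The choroid plexus and ependymal sum was 113 to 298 CPM against 334 to 589 CPM, the endothelial sum 38.2 to 48.3 CPM against 60.8 to 72.2 CPM, the mural sum 13.7 to 17.1 CPM against 5.48 to 5.53 CPM and the fibroblast sum 7.48 to 22.2 CPM against 14.98 to 25.1 CPM. Without Pecam1 the endothelial sum was 12.2 to 18.0 CPM against 13.4 to 14.6 CPM, and without Anpep the mural sum was 2.32 to 3.91 CPM against 3.93 to 4.37 CPM. Without Igf2 the fibroblast sum was 2.17 to 5.59 CPM against 1.34 to 2.44 CPM, so the lower full sum came from Igf2. B cell markers stood at 505 to 549 CPM against 395 to 505 CPM, mostly from Ighm, and Pax5 was at 0 in all neonatal libraries. The T cell sum was 9.05 to 27.5 CPM against 2.12 to 3.47 CPM, mostly from Cd4, the NK cell sum 0.754 to 0.976 CPM against 2.23 to 5.14 CPM, mostly from Klrd1, the dendritic cell sum 30.8 to 37.1 CPM against 30.4 to 38.02 CPM and the mast cell sum 0.251 to 0.869 CPM against 0.365 to 1.03 CPM.

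Neonatal CD11c+ and CD11c− microglia were then compared directly, to see which of these genes also differed within the neonatal brain. The fit held all 17 libraries (13060 genes), so the EAE libraries shared in its filter and its estimate of spread. Here 403 genes were higher (3.09%) and 94 lower (0.72%) in the CD11c+ cells. Levels in the following sentences are on the scale of that fit, and the comparisons with CD11c− and with adult microglia share the same 4 CD11c+ libraries. Pools of the 2 neonatal groups may come from the same sorts, which the fit does not take into account. Library 17, of CD11c− cells, stood apart with 5.10% mitochondrial counts against 1.06% to 1.13% in the other 3 of its group. Without it 452 genes were called in both directions together, and without library 16 the number was 477, against 497 with all. With the 8 neonatal libraries fitted alone 370 genes were called, 312 higher and 58 lower.

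The CD11c, phagocytic and lipid genes differed within the neonates as well. Of the 20 genes named for CD11c+ microglia, 17 were higher by the adjusted p alone. The study chose these genes for CD11c+ cells on these samples, so their count is no independent evidence. Of the phagocytic list 21 of 32 were higher and 0 lower, and of the lipid list 15 of 25 were higher and 0 lower. Of the lysosome list 15 of 44 were higher and 1 lower. Among all genes 5.58% were higher and 2.2% lower. Gpnmb stood at 373 ± 64.8 CPM in neonatal CD11c+, 5.69 ± 2.18 CPM in neonatal CD11c− and 0.560 ± 0.470 CPM in adult microglia (log2 difference 6.08 ± 0.32, adjusted p = 1.1e-09 for CD11c+ minus CD11c−). For Spp1 the levels were 4935 ± 1157 CPM in neonatal CD11c+, 139.5 ± 28.6 CPM in neonatal CD11c− and 9.42 ± 3.33 CPM in adult microglia (log2 difference 5.15 ± 0.25, adjusted p = 5.4e-10). Igf1 stood at 479.7 ± 65.7 CPM in neonatal CD11c+, 58.96 ± 14.1 CPM in neonatal CD11c− and 2.79 ± 1.32 CPM in adult microglia (log2 difference 3.03 ± 0.29, adjusted p = 1.6e-06). In these 3 the CD11c− cells lay between the others. Clec7a (134 ± 13.5 CPM in neonatal CD11c+, 14.1 ± 3.46 CPM in neonatal CD11c− and 23.6 ± 3.80 CPM in adult microglia, log2 difference 3.25 ± 0.21, adjusted p = 1.6e-08) and Itgax (log2 difference 5.21 ± 0.18, adjusted p = 5.6e-12) were lower in CD11c− cells than in adult ones by their means. Csf1 (643 ± 79.3 CPM in neonatal CD11c+, 151 ± 11.01 CPM in neonatal CD11c− and 49.8 ± 3.43 CPM in adult microglia, log2 difference 2.09 ± 0.13, adjusted p = 6.4e-09), Lpl (1719.8 ± 261 CPM in neonatal CD11c+, 729 ± 85.5 CPM in neonatal CD11c− and 77.1 ± 14.2 CPM in adult microglia, log2 difference 1.24 ± 0.15, adjusted p = 1.7e-05) and Ctsb (15945 ± 1127 CPM in neonatal CD11c+, 7021 ± 431 CPM in neonatal CD11c− and 2738 ± 226 CPM in adult microglia, log2 difference 1.18 ± 0.11, adjusted p = 8.5e-07) were about 2- to 4-fold higher in the CD11c+ cells.

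The cell division lists gave almost no gene in this direct test. Of the mitosis genes 0 of 44 were higher and 0 lower, and of the DNA replication genes 0 of 41 were higher and 1 lower, against 2.2% of all genes that were lower. Top2a stood at 236 ± 20.1 CPM in neonatal CD11c+, 326 ± 39.7 CPM in neonatal CD11c− and 9.95 ± 1.43 CPM in adult microglia (log2 difference -0.46 ± 0.20, adjusted p = 0.12) and Mcm6 at 137 ± 5.77 CPM in neonatal CD11c+, 161 ± 11.7 CPM in neonatal CD11c− and 19.8 ± 0.570 CPM in adult microglia (log2 difference -0.23 ± 0.18, adjusted p = 0.4). For E2f1 the levels were 58.3 ± 3.32 CPM in neonatal CD11c+, 58.6 ± 7.83 CPM in neonatal CD11c− and 3.44 ± 0.743 CPM in adult microglia (log2 difference -0.01 ± 0.17, adjusted p = 0.98), and for Igf2bp3 58.97 ± 4.22 CPM in neonatal CD11c+, 50.04 ± 5.15 CPM in neonatal CD11c− and 0.917 ± 0.179 CPM in adult microglia (log2 difference 0.24 ± 0.10, adjusted p = 0.12). A p that misses the threshold does not show equal levels, and the standard errors leave room for differences of up to about 2-fold for Top2a. Gas6 was likewise high in both neonatal groups (1157 ± 66.3 CPM in neonatal CD11c+, 1010.4 ± 165 CPM in neonatal CD11c− and 213 ± 4.48 CPM in adult microglia, log2 difference 0.20 ± 0.12, adjusted p = 0.29).

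Some genes that were low against the adult cells were also lower than in CD11c− cells, and others were not past the test. Of the homeostatic list 0 of 29 were higher and 11 lower. Counts in this paragraph are read against the 5.58% of all genes that were higher and the 2.2% that were lower. Tmem119 stood at 367 ± 41.98 CPM in neonatal CD11c+, 791 ± 179 CPM in neonatal CD11c− and 2555 ± 191 CPM in adult microglia (log2 difference -1.11 ± 0.18, adjusted p = 3.9e-04) and Selplg at 396 ± 30.3 CPM in neonatal CD11c+, 889 ± 228 CPM in neonatal CD11c− and 4026 ± 451 CPM in adult microglia (log2 difference -1.17 ± 0.15, adjusted p = 2.6e-05), and in both the CD11c− cells lay between. Smad3 had 96.9 ± 2.89 CPM in neonatal CD11c+, 133 ± 9.57 CPM in neonatal CD11c− and 239 ± 11.9 CPM in adult microglia (log2 difference -0.45 ± 0.09, adjusted p = 0.0028). Trpm2 (20.3 ± 1.48 CPM in neonatal CD11c+, 20.8 ± 3.91 CPM in neonatal CD11c− and 213 ± 6.09 CPM in adult microglia, log2 difference -0.04 ± 0.13, adjusted p = 0.85), Tgm2 (0.739 ± 0.301 CPM in neonatal CD11c+, 0.639 ± 0.230 CPM in neonatal CD11c− and 114 ± 10.97 CPM in adult microglia, log2 difference 0.10 ± 0.60, adjusted p = 0.93) and H2-DMa (33.7 ± 2.45 CPM in neonatal CD11c+, 31.2 ± 6.01 CPM in neonatal CD11c− and 118 ± 16.7 CPM in adult microglia, log2 difference 0.11 ± 0.17, adjusted p = 0.71) did not differ past the test. Hspa1b was at about 1 CPM in both (1.01 ± 0.440 CPM in neonatal CD11c+, 1.19 ± 0.5004 CPM in neonatal CD11c− and 470.4 ± 89.9 CPM in adult microglia, log2 difference -0.28 ± 0.45, adjusted p = 0.71). For the neutrophil markers the direct test gave 8 lower members of 10, and for the border macrophage markers 9 higher of 10. Levels of S100a9 were uneven among the CD11c− libraries, from 64 to 508 CPM. The part of neutrophil and border macrophage RNA in these counts was not tested. Of the neuroectodermal genes 6 were higher and 1, Nes, was lower (138 ± 22.9 CPM in neonatal CD11c+, 218 ± 48.1 CPM in neonatal CD11c− and 18.7 ± 1.70 CPM in adult microglia, log2 difference -0.66 ± 0.16, adjusted p = 0.0074).

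**Figure D5:**
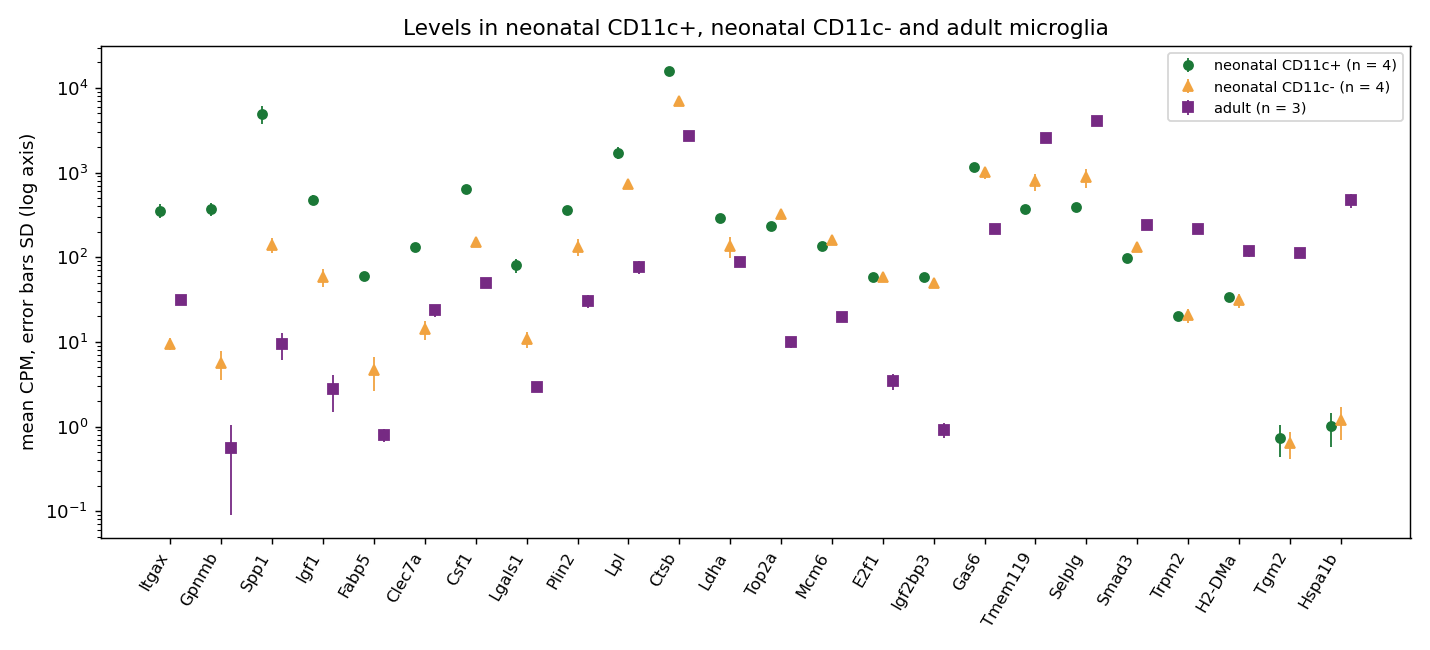
Mean level of 24 genes in neonatal CD11c+ (circles, n = 4), neonatal CD11c− (triangles, n = 4) and adult microglia (squares, n = 3), in CPM on a log axis with error bars of 1 SD, on the scale of the fit of all 17 libraries. From Itgax to Ctsb the CD11c+ cells are highest, for Top2a and E2f1 both neonatal groups lie above the adult level of 9.95 and 3.44 CPM, and for Trpm2 both lie under it.

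Glycolysis differed within the neonates, as 11 of 25 were higher and 0 lower, including Ldha (293 ± 25.6 CPM in neonatal CD11c+, 136 ± 38.1 CPM in neonatal CD11c− and 88.6 ± 6.39 CPM in adult microglia, log2 difference 1.10 ± 0.22, adjusted p = 0.002). For the ribosomal proteins 2 of 79 were higher and 0 lower, for the respiratory chain 7 of 61 were higher and 0 lower and for sterol synthesis 0 of 23 were higher and 0 lower, counts to be read against 5.58% of all genes higher and 2.2% lower. The MHC class II list, which fell against adult cells, gave 1 higher and none lower. The guidance list gave 6 higher and 1 lower of 31, and the chemokine list 6 higher and none lower of 22.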

How the data were processed

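Messenger RNA of sorted microglia was sequenced as single 50-base reads from TruSeq libraries. The authors deposited 1 table per library of raw counts, that is, whole reads per Ensembl gene, after alignment with STAR (2.3.11 in the submitters' processing notes) to GRCm38 and counting with HTSeq 0.5.4 (edgeR 3.12.0 is also named there). The strand setting is not given in the sources used here, so reads of overlapping and antisense genes may be shared. All 17 tables hold the same 41388 genes, of which 40254 were matched to a symbol and 17737 had no count in any library. No libraries of a group agreed within sampling noise among the 7 compared (smallest chi-square per gene 3.22).

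Libraries were grouped by their labels. Genes with at least 1 CPM in at least 3 of the 7 libraries were fitted with edgeR's quasi-likelihood test (edgeR 4.0.16, limma 3.58.1, R 4.3.3, TMM scaling), with Benjamini-Hochberg adjustment over all genes tested, and the standard error is the log2 fold change divided by the root of the F statistic. Neonatal CD11c+ and CD11c− microglia were compared in a joint fit of all 17 libraries, the EAE libraries included (13060 genes). The code was tested on simulated data. A gene at 0 in a group is given as a bound from 3 counts over that group, and intervals and floors cover counting error only.

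The members of the comparison and the 46 function and 18 cell type lists were chosen with earlier results of these data known. The lists hold 1318 different genes, of which 1312 were matched and 1124 tested. Some genes are in more than 1 list, so the counts of different lists are not independent. Genes were named by rule: the 15 largest called changes in each direction among genes whose libraries did not overlap and with at least 10 CPM in the higher group, in each list the 6 members with the smallest and the 2 with the largest adjusted p, from which the text draws, the genes the study names for these libraries, and the listed genes whose promoter holds a motif. Some genes that this rule names are not reported here. Promoter windows (250 bases before to 50 after the start) are from RefSeq on GRCm38.p6, 32851 windows of 27025 genes. The alternatives were DESeq2 1.42.0 size factors and its Wald test, other filters, other samples in the fit, other thresholds, scaling without mitochondrial or immediate early genes, and leaving out libraries.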

Additional observations from a re-analysis of the deposited data

Results flagged for a closer look

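Single libraries lay far from the others of their group, by the 95% critical value of Dixon's test for 4 samples, in 21 of the 264 groups of gene levels tested, and 15 of the 21 were levels in library 16. Chance alone marks about 1 in 20 groups tested. Groups of 3, such as the adult libraries, were not tested.

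Library 16 of the neonatal CD11c+ microglia, the library that also stood apart over all genes, accounted for most of them. It was the highest of the 4 for the immediate early genes Jun (4709 CPM), Ier2 (976 CPM), Egr2 (79.2 CPM) and Klf4 (228 CPM), for Socs3 (166 CPM), an inhibitor of cytokine signalling, for the chemokine genes Ccl4 (258 CPM) and Cxcl16 (31.1 CPM), for the heat shock gene Hspa1a (5.04 CPM), for Cd74 (102 CPM), the invariant chain of class II, for Nr1h2 (201 CPM), an oxysterol receptor gene, for the replication genes Mcm2 (97.1 CPM) and Pcna (141 CPM), and for the Y-linked Eif2s3y (59.6 CPM). It was the lowest for Nr1h3 (0.976 CPM), the other oxysterol receptor gene, and for B2m (1645 CPM), the light chain of class I.

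Of the other libraries of this group, library 13 was the highest for the replication gene Rrm1 (119 CPM) and for Bst2 (112 CPM), an interferon-induced membrane protein, and the lowest for Smad3 (92.5 CPM), a carrier of the TGF-β signal. Library 14 was the lowest for Vegfb (54.2 CPM), a growth factor gene, and for Sdhd (90.0 CPM), a subunit of respiratory complex II. Among the neonatal CD11c− libraries, library 19 was the highest for S100a9 (508 CPM), a calprotectin subunit that is abundant in neutrophils.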

How the results depend on the processing

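Of 223 named genes, 188 had an adjusted p of at most 0.01 in the edgeR test. None of these changed sign under another scaling, test, set of samples or with any library left out. In every fit without 1 library that tested them, 184 stayed past the threshold. Many were named for large changes or small adjusted p-values in these same libraries. Their stability is therefore partly fixed by that choice and does not speak for the genes not named. The count of genes called followed the threshold most. By the adjusted p alone it was 3201 higher and 2651 lower, and at a log2 fold change of 1.5 it was 1014 higher and 529 lower. With 1 library left out, 1378 to 1554 genes were called higher and 748 to 1088 lower. The other settings gave 1101 to 1719 higher and 695 to 1134 lower. With DESeq2's Wald test they were 1494 and 921. With the 8 neonatal libraries fitted alone, 312 in place of 403 genes were higher in neonatal CD11c+ than in CD11c− microglia. The lower genes then numbered 58 in place of 94. The cause of these smaller counts was not tested. Of 92 list counts, 11 moved by over 1.5 times without library 16, 12 with no filter on low counts and 7 with a filter of 5 CPM in 3 libraries.

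Some genes that did not pass the test changed sign, and no direction is read from them; the cause was not tested. With 1 library left out, the log2 fold changes ran from −0.43 to 0.090 for Nr1h3, −0.067 to 0.16 for Plxna3, −0.027 to 0.0031 for Stat3, −0.051 to 0.033 for Mef2c, −0.044 to 0.15 for Bmpr2, −0.047 to 0.042 for Bmpr1a, −0.12 to 0.086 for Rpl10a, −0.077 to 0.019 for Keap1, −0.31 to 0.13 for Cd74, −0.077 to 0.077 for C5ar1 and −1.19 to 0.068 for Egr2. Without libraries 16 and 21 together, an alternative chosen after seeing the data, they were −0.0096 for Igf2r, 0.24 for Nr1h3, −0.043 for Plxna3, −0.18 for Rpl10a and −0.033 for C5ar1, and 1488 genes were called higher and 963 lower. For Rpl10a the value was −0.0039 with DESeq2's size factors and −0.0035 with its Wald test.

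No paired analysis was possible because each library has its own number and no source used here says which libraries of different groups came from the same sort. Depth limits the low genes: 3 counts correspond to 0.323 to 0.471 CPM in a neonatal CD11c+ and 0.324 to 0.400 CPM in an adult library, so levels below these are not told apart from 0. With 4 and 3 libraries, and sex, age and gate differing together, no setting separates these factors.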
